A study of Mus musculus with 18 samples.

Results

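The comparison described here is that of mouse livers injured by carbon tetrachloride (CCl4) with and without Pien Tze Huang, across all genes measured. It rests on 12 of the study's 18 libraries, chosen by their labels: 6 from the group named CCl4 and 6 from the group named CCl4_PTH, each from 1 mouse. Fold changes and counts of calls are also given without the library CCl4_PTH 1, which lay apart from its group. The animals were male C57BL/6 mice, 6 weeks old at the start, 45 in all and 15 per group. Both groups compared had CCl4 injected into the peritoneum 2 times per week. CCl4 mice had water by gavage, and CCl4_PTH mice had Pien Tze Huang by gavage each day in its place. The remaining 6 libraries came from mice given olive oil injections and water, called control here. Their levels are set beside the others. They also entered the gene filter, the scaling and the estimate of the spread behind each test. Livers were sampled in week 22. The labels write both PTH and PZH for the medicine and call the CCl4 mice a liver cancer model. The sources used here do not give the doses, how the 6 mice of a group were picked out of 15, whether a sample held tumour or the time since the last injection.

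Pien Tze Huang is a traditional Chinese preparation of musk, ox gallstone, snake gall and notoginseng root. CCl4 is harmful because cytochrome P450 enzymes, above all Cyp2e1 in hepatocytes around the central vein, turn it into a reactive radical. Repeated doses kill those hepatocytes, draw in macrophages and activate stellate cells, which lay down scar matrix. Hepatocytes divide their work along the lobule: those around the central vein, kept so by Wnt signals from the endothelium, make glutamine, bile acids and P450 enzymes, and those near the portal tract make urea and glucose.

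CCl4_PTH libraries were deeper than CCl4 libraries. Total estimated counts ran from 67.2 M to 83.8 M in CCl4 and from 76.9 M to 118.9 M in CCl4_PTH (two-sided exact permutation test, p = 0.0108, Benjamini-Hochberg adjusted p = 0.0325 over 5 measures; 0.013 and 0.0379 without CCl4_PTH 1). Ribosomal RNA loci took 37.3% to 49.4% and 30.6% to 47.2% (exact permutation p = 0.197, adjusted p = 0.246; 0.372 and 0.39 without CCl4_PTH 1). Albumin (Alb) was at 11739.5 to 36148 CPM (median 24878) in CCl4 and 23673 to 31622 CPM (median 25069) in CCl4_PTH livers, which fits the label of the tissue, and passed in neither fit (log2 fold change 0.08 ± 0.25, adjusted p = 0.883, and 0.12 ± 0.26, adjusted p = 0.813, without CCl4_PTH 1). Of the 3 defining markers of pancreatic acinar cells, Cpa1 and Prss2 had 0 counts in all 12 libraries and Ctrb1 had 0.0766 CPM in CCl4_PTH 1 and 0 in the other 11. The summed defining markers of adipocytes and of skeletal muscle were below 1 CPM in each library. On the first principal component of log2 CPM (24.5% of the variance) the other 5 CCl4_PTH libraries lay between 39.3 and 88.6, and the 6 CCl4 libraries between −90.1 and 6.94. CCl4_PTH 1 lay at −35.9, among the CCl4 libraries, and at −86.1 on the second component (12.8%). It stood alone in its group in 1715 genes (7.85% of those tested, Dixon's test), 724 of them high and 991 low, against 117 to 456 genes for each other library. CPM are counts scaled to a common library size, here with the TMM factors of edgeR.

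**Figure D1:**
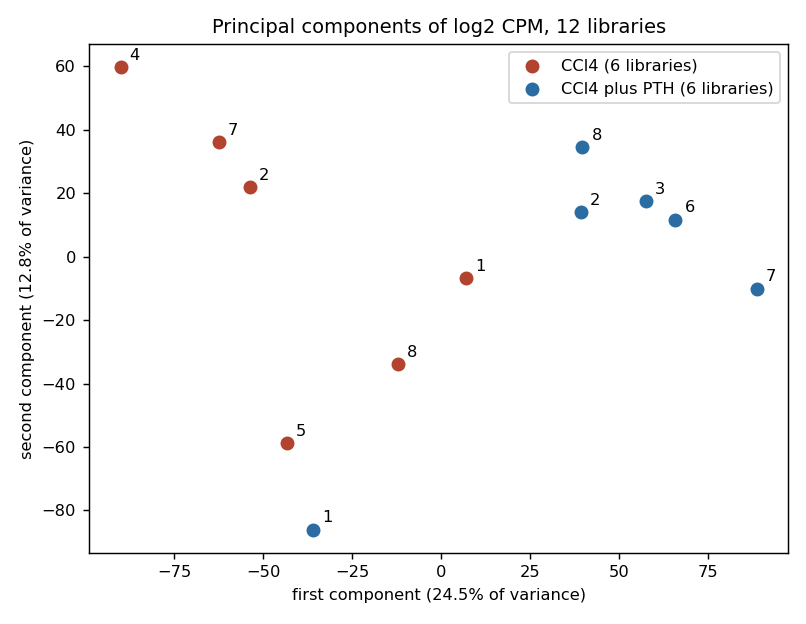
Each point is 1 of the 12 libraries, placed by its first (horizontal, 24.5% of the variance) and second (vertical, 12.8%) principal component of log2 CPM and labelled by its replicate number. CCl4_PTH 1 lies at −35.9 and −86.1, apart from the other 5 CCl4_PTH libraries, which lie at 39.3 or more on the first component.

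Pien Tze Huang was accompanied by a broad shift. Of 21840 genes tested, 1551 were higher (7.1%) and 1081 lower (4.95%) in CCl4_PTH than in CCl4 livers, 361 and 330 of them more than 2-fold (edgeR quasi-likelihood test, Benjamini-Hochberg adjusted p under 0.05; 12.1% called in all). Without CCl4_PTH 1, 2286 of 22203 genes were higher (10.3%) and 1568 lower (7.06%), 17.4% in all. Among the 21840 genes tested in both fits, 1524 were higher in both, 27 only with all 12 libraries and 760 only without CCl4_PTH 1. The lower genes numbered 960, 121 and 601 in the same order, and 0 genes were called in opposite directions. The rise was larger without that library in 1334 of the 1524 genes, and the fall in 561 of the 960. A gene is said to have risen or fallen below only where it passed this test, n is 6 against 6 libraries (6 against 5 without CCl4_PTH 1), and differences are log2 fold changes of CCl4_PTH over CCl4 with an approximate standard error. CPM of the groups did not overlap in 2.2% of genes with CCl4_PTH higher and in 1.87% with CCl4_PTH lower, or 6.17% and 4.55% without CCl4_PTH 1. Counts depended on single libraries: 941 genes were higher and 582 lower without CCl4 4, 1018 and 580 without CCl4 7, and 934 and 575 without CCl4_PTH 7, while 649 were lower without CCl4_PTH 3 and 622 without CCl4_PTH 6. Scaling by library size alone gave 476 higher and 621 lower genes, so that 43.4% of the called genes were higher against 58.9% with TMM, and moved the median of all genes from −0.03 to −0.13. With counts thinned at random to the smallest total outside ribosomal RNA, 1563 genes were higher and 1148 lower.

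Protein-coding genes held most of the calls, with 1374 higher and 991 lower of 14942 (15.8%), against 93 and 37 of 2763 long noncoding RNAs (4.71%); without CCl4_PTH 1 these were 1999 and 1414, and 149 and 58. In bulk tissue such as this, fewer cells of a type and less RNA per cell cannot be told apart. The 51 gene lists used below name 1144 genes, and 262 of the called genes were in some list. Some genes are in several lists, so the lists are not separate observations. Members of a list are to be read against the shares over all genes. Those were 7.1% higher and 4.95% lower, or 10.3% and 7.06% without CCl4_PTH 1. No list was tested as a set. Genes given as examples of a list were in part chosen after their values were seen.

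**Figure D2:**
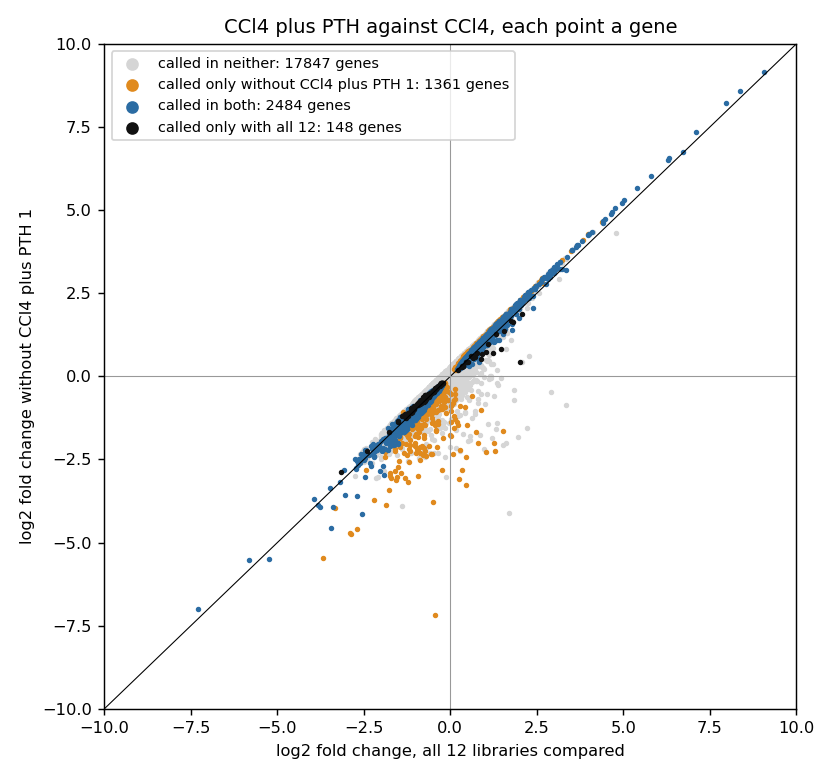
Each point is a gene, with its log2 fold change (CCl4_PTH over CCl4) with all 12 libraries on the horizontal axis and without CCl4_PTH 1 on the vertical axis, coloured by the fits that called it. The 1524 genes higher in both and the 960 lower in both lie in the upper right and lower left, and 0 genes were called in opposite directions.

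Many genes of hepatocytes around the central vein rose. Of 30 measured pericentral genes, 12 rose and 0 fell with all 12 libraries, and 20 rose and 0 fell without CCl4_PTH 1. These 30 pericentral genes had a median log2 fold change of 1.04, or 1.21 without CCl4_PTH 1. 40.0% were higher, and 66.7% without CCl4_PTH 1, against 7.1% and 10.3% of all genes. 8 of the 12 rises held in each of the 12 fits that left out 1 library. 9 (without CCl4 4 or CCl4 7) to 20 (without CCl4_PTH 1) of the measured genes rose in such a fit. CCl4_PTH 1 lay above every CCl4 library for 8 of the 30, within their range for 13 and below all for 9. Its mean log2 CPM over the 30 was 4.02, against 5.39 to 5.63 in the other 5 and 3.53 to 4.78 in CCl4. All 6 CCl4_PTH libraries lay above all CCl4 libraries for 5 of the 30, against 2.2% of all genes. The genes detailed next are among those 5. Slc1a2, a glutamate transporter of the hepatocyte layer next to the central vein (chr2:102658659-102790784, GRCm38), had 0.333 to 2.36 CPM in CCl4 (median 0.658) and 46.2 to 132 CPM in CCl4_PTH livers (median 93.2). The Slc1a2 values of both groups did not overlap, with CCl4_PTH 1 at 86.8 CPM. Slc1a2 had a log2 fold change of 6.72 ± 0.47 (edgeR adjusted p = 5.77e-07), or 6.76 ± 0.48 without CCl4_PTH 1 (adjusted p = 5.88e-07). Control livers had 209 to 275 CPM. Glul, glutamine synthetase, the textbook enzyme of that layer (chr1:153899944-153909723), had 45.7 to 94.3 CPM in CCl4 (median 65.4) and 160.1 to 432 CPM in CCl4_PTH livers (median 324). The Glul values of both groups did not overlap, with CCl4_PTH 1 at 160.1 CPM. Glul had a log2 fold change of 2.22 ± 0.23 (edgeR adjusted p = 1.99e-05), or 2.38 ± 0.19 without CCl4_PTH 1 (adjusted p = 8.78e-07). Oat, ornithine aminotransferase of the same layer, had 13.1 to 26 CPM in CCl4 (median 19) and 96.2 to 207 CPM in CCl4_PTH livers (median 121). The Oat values of both groups did not overlap, with CCl4_PTH 1 at 96.2 CPM. Oat had a log2 fold change of 2.82 ± 0.27 (edgeR adjusted p = 9.68e-06), or 2.92 ± 0.27 without CCl4_PTH 1 (adjusted p = 4.11e-06). Cyp2e1, the P450 enzyme that activates CCl4, had 98.6 to 642 CPM in CCl4 (median 195) and 998 to 2520.2 CPM in CCl4_PTH livers (median 1861). The Cyp2e1 values of both groups did not overlap, with CCl4_PTH 1 at 998 CPM. Cyp2e1 had a log2 fold change of 2.81 ± 0.41 (edgeR adjusted p = 0.000551), or 2.96 ± 0.41 without CCl4_PTH 1 (adjusted p = 0.000146). Control livers had 2986 to 6108 CPM of Cyp2e1, above every library of both groups.

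A few genes of Wnt signalling passed, of which Lgr5 and Tbx3 are also among the pericentral rises above. Of 23 measured Wnt signals and targets, 4 rose (Lgr4, Lgr5, Notum and Tbx3, Lgr4 and Lgr5 in every leave-one-out fit) and 1 fell (Dkk3, but not in every leave-one-out fit) with all 12 libraries, 7 rose and 1 fell without CCl4_PTH 1, and 4 rose and 0 fell with size scaling alone. These 23 Wnt signals and targets had a median log2 fold change of 0.09, or 0.24 without CCl4_PTH 1. The median was −0.04 when libraries were scaled by size alone. As a share of the list 17.4% rose, and 30.4% without CCl4_PTH 1, against 7.1% and 10.3% of all genes. 2 of the 4 rises held in each of the 12 fits that left out 1 library. 2 (without CCl4 4, CCl4 7, CCl4_PTH 7 or CCl4_PTH 8) to 7 (without CCl4_PTH 1) of the measured genes rose in such a fit. Lgr5, a receptor for R-spondins that amplifies Wnt signals and marks pericentral hepatocytes, had 1.16 to 3.08 CPM in CCl4 (median 1.8) and 4.44 to 8.4 CPM in CCl4_PTH livers (median 6.76). The Lgr5 values of both groups did not overlap, with CCl4_PTH 1 at 4.44 CPM. Lgr5 had a log2 fold change of 1.71 ± 0.21 (edgeR adjusted p = 0.000143), or 1.83 ± 0.21 without CCl4_PTH 1 (adjusted p = 2.27e-05). Its relative Lgr4 rose by 0.84 ± 0.14 (edgeR adjusted p = 0.00192), or 0.91 ± 0.15 without CCl4_PTH 1 (adjusted p = 0.000449). The endothelial ligands Wnt2 (0.18 ± 0.21, and 0.24 ± 0.22 without CCl4_PTH 1) and Wnt9b (0.51 ± 0.26, and 0.41 ± 0.27 without CCl4_PTH 1), R-spondin 3 (Rspo3, 0.09 ± 0.16, and 0.10 ± 0.18 without CCl4_PTH 1) and the target Axin2 (0.12 ± 0.20, and 0.27 ± 0.17 without CCl4_PTH 1) did not pass with or without CCl4_PTH 1. Cyp7a1, which sets the pace of bile acid synthesis, was at 12 to 213 CPM (median 50.6) in CCl4 and 7.48 to 235 CPM (median 109.9) in CCl4_PTH livers, and did not pass (log2 fold change 0.54 ± 0.67, adjusted p = 0.669, and 0.80 ± 0.59, adjusted p = 0.403, without CCl4_PTH 1).

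A few periportal genes rose. Of 25 measured periportal genes, 3 rose (Igfals, Pigr and Slc38a3, Slc38a3 in every leave-one-out fit) and 0 fell with all 12 libraries, 5 rose and 1 fell without CCl4_PTH 1, and 1 rose and 0 fell with size scaling alone. These 25 periportal genes had a median log2 fold change of 0.35, or 0.12 without CCl4_PTH 1. The rises were 12% of them with all libraries and 20% without CCl4_PTH 1, against 7.1% and 10.3% of all genes. Slc38a3, a glutamine transporter of periportal hepatocytes, had 181 to 537 CPM in CCl4 (median 350.3) and 448 to 1049 CPM in CCl4_PTH livers (median 798). The Slc38a3 values of both groups overlapped only through CCl4_PTH 1, which lay among the CCl4 libraries at 448 CPM, while the other 5 lay above all of them. Slc38a3 had a log2 fold change of 1.17 ± 0.24 (edgeR adjusted p = 0.00581), or 1.3 ± 0.23 without CCl4_PTH 1 (adjusted p = 0.000811). Cps1, the entry enzyme of the urea cycle, had 1581 to 3428 CPM (median 2012) in CCl4 and 2389 to 3429.7 CPM (median 3050.3) in CCl4_PTH livers and did not pass (log2 fold change 0.42 ± 0.22, adjusted p = 0.224, and 0.43 ± 0.23, adjusted p = 0.216, without CCl4_PTH 1).

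**Figure D3:**
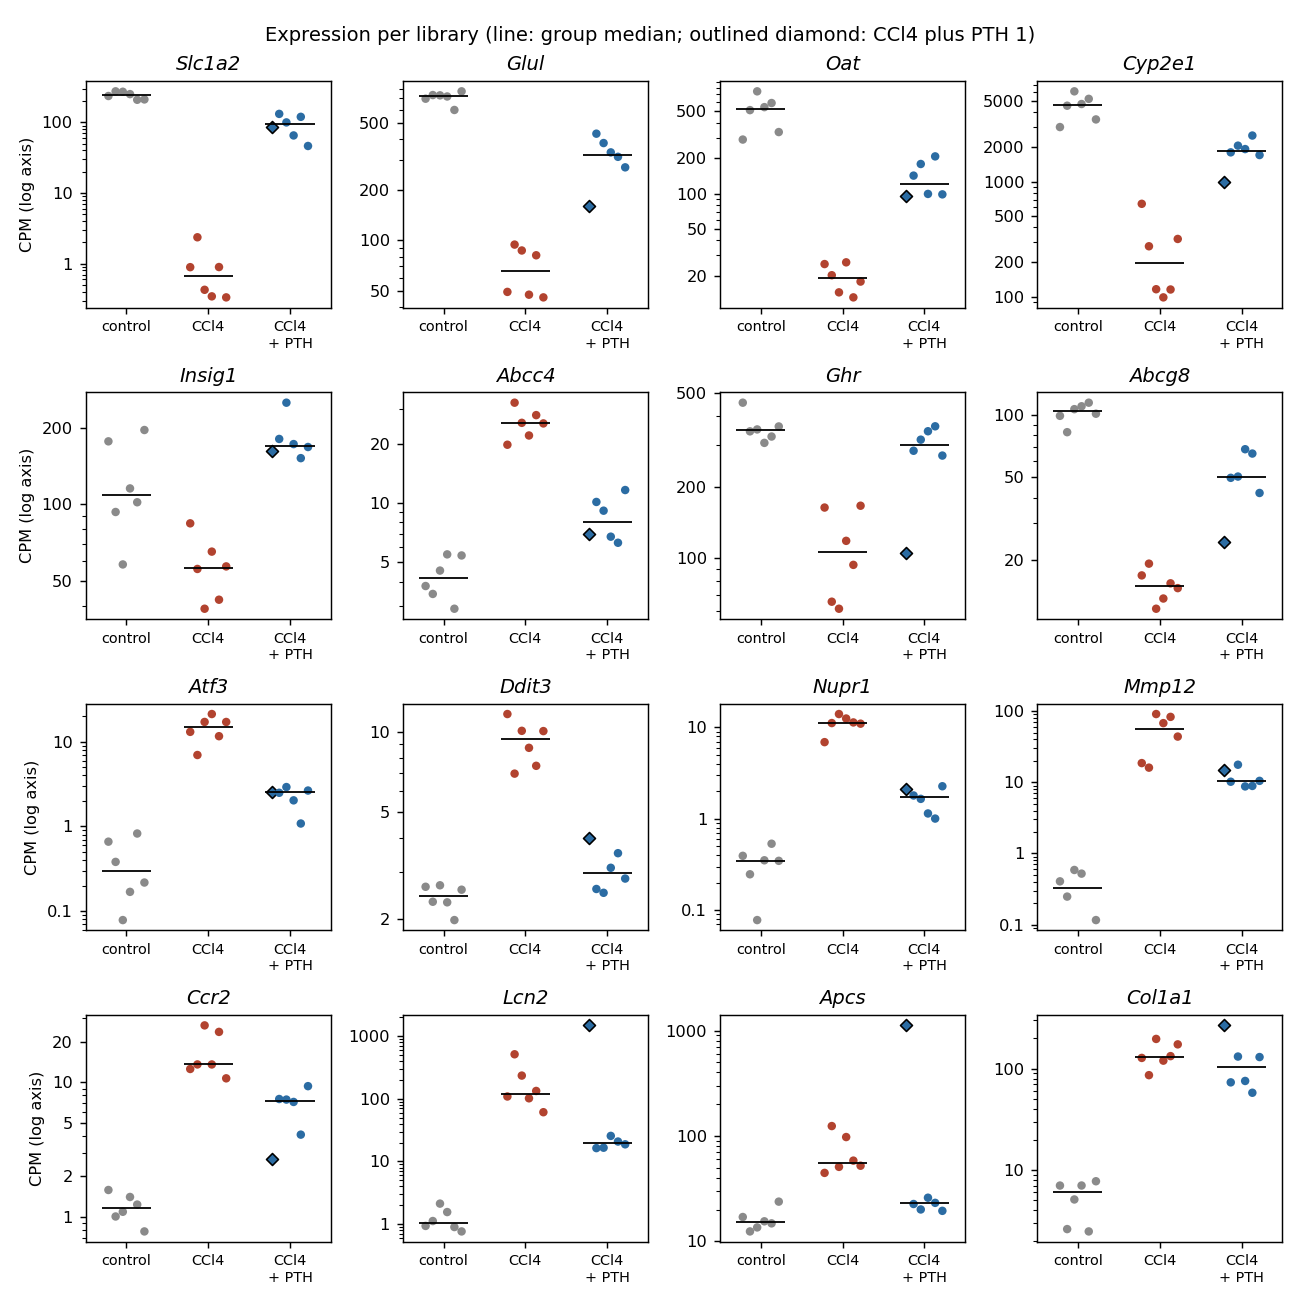
CPM of 16 genes (logarithmic vertical axes) in each control, CCl4 and CCl4_PTH library, with the group median as a line and CCl4_PTH 1 as an outlined diamond. Slc1a2, Glul and Oat separate the CCl4 and CCl4_PTH groups in all 12 libraries, whereas Lcn2 and Apcs are highest of all in CCl4_PTH 1.

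Many genes that male mouse livers express more than female ones rose too. In mice this pattern follows the pulses of growth hormone, relayed by Stat5b. Of 32 measured male-biased genes, 18 rose and 0 fell with all 12 libraries, and 23 rose and 0 fell without CCl4_PTH 1. These 32 male-biased genes had a median log2 fold change of 1.48, or 1.65 without CCl4_PTH 1. 56.2% were higher against 7.1% of all genes. 14 of the 18 rises held in each of the 12 fits that left out 1 library. 14 (without CCl4 4) to 23 (without CCl4_PTH 1) of the measured genes rose in such a fit. Mup12, a major urinary protein, which carries pheromones in male urine, had 1.69 to 7.96 CPM in CCl4 (median 6.17) and 2.04 to 269 CPM in CCl4_PTH livers (median 45.1). The Mup12 values of both groups overlapped only through CCl4_PTH 1, which lay among the CCl4 libraries at 2.04 CPM, while the other 5 lay above all of them. Mup12 had a log2 fold change of 3.66 ± 0.74 (edgeR adjusted p = 0.00536), or 3.94 ± 0.56 without CCl4_PTH 1 (adjusted p = 0.000211). Mup19, another major urinary protein, had 1.85 to 17.1 CPM in CCl4 (median 9.51) and 2.38 to 625.1 CPM in CCl4_PTH livers (median 133). The Mup19 values of both groups overlapped only through CCl4_PTH 1, which lay among the CCl4 libraries at 2.38 CPM, while the other 5 lay above all of them. Mup19 had a log2 fold change of 4.4 ± 0.90 (edgeR adjusted p = 0.00626), or 4.68 ± 0.70 without CCl4_PTH 1 (adjusted p = 0.000362). Cyp4a12b, a fatty acid hydroxylase typical of male liver, had 2.58 to 10.4 CPM in CCl4 (median 5.14) and 24.3 to 72.1 CPM in CCl4_PTH livers (median 38.5). The Cyp4a12b values of both groups did not overlap, with CCl4_PTH 1 at 25.3 CPM. Cyp4a12b had a log2 fold change of 2.87 ± 0.34 (edgeR adjusted p = 0.000157), or 3.0 ± 0.34 without CCl4_PTH 1 (adjusted p = 3.94e-05). Slco1a1, a male-biased organic anion transporter, had 2.89 to 6.06 CPM in CCl4 (median 3.57) and 8.5 to 27.3 CPM in CCl4_PTH livers (median 12.9). The Slco1a1 values of both groups did not overlap, with CCl4_PTH 1 at 18.2 CPM. Slco1a1 had a log2 fold change of 1.91 ± 0.27 (edgeR adjusted p = 0.000429), or 1.87 ± 0.28 without CCl4_PTH 1 (adjusted p = 0.000262). Nudt7, a peroxisomal coenzyme A hydrolase, rose by 2.47 ± 0.44 (2.72 ± 0.31 without CCl4_PTH 1). Hsd3b5, a male-specific steroid enzyme, was at 0 to 0.12 CPM (median 0.0336) in CCl4 and 0.0426 to 9.02 CPM (median 0.662) in CCl4_PTH livers, and rose by 5.41 ± 1.11 (edgeR adjusted p = 0.00651), or 5.67 ± 0.97 without CCl4_PTH 1 (adjusted p = 0.00112), but limma with voom quality weights gave an adjusted p of 0.248. Mup, Cyp2c, Cyp3a and Ugt2b genes have near-identical copies, so counts may be split between them.

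Of 23 measured genes listed as female-biased, 3 rose (Cyp2a5, Cyp3a41b and Sult2a8, Cyp2a5 and Sult2a8 in every leave-one-out fit) and 0 fell with all 12 libraries, and 4 rose and 0 fell without CCl4_PTH 1. No female livers were measured, so the label of a listed gene could not be checked here. These 23 female-biased genes had a median log2 fold change of −0.23, or −0.40 without CCl4_PTH 1. Sult2a8, a hepatocyte sulfotransferase, had 2.97 to 22.1 CPM in CCl4 (median 16.2) and 2.01 to 231 CPM in CCl4_PTH livers (median 188). The Sult2a8 values of both groups overlapped only through CCl4_PTH 1, which lay below all CCl4 libraries at 2.01 CPM, while the other 5 lay above all of them. Sult2a8 had a log2 fold change of 3.63 ± 0.70 (edgeR adjusted p = 0.00475), or 3.9 ± 0.40 without CCl4_PTH 1 (adjusted p = 1.28e-05). Control livers, of male mice as well, had 296 to 466 CPM of Sult2a8, above every library of both groups, and 0 CPM of Cyp3a41b. Cyp2a5, a coumarin hydroxylase, had 53.9 to 91.8 CPM in CCl4 (median 74.5) and 50.03 to 365 CPM in CCl4_PTH livers (median 276). The Cyp2a5 values of both groups overlapped only through CCl4_PTH 1, which lay below all CCl4 libraries at 50.03 CPM, while the other 5 lay above all of them. Cyp2a5 had a log2 fold change of 1.79 ± 0.32 (edgeR adjusted p = 0.00235), or 2.03 ± 0.18 without CCl4_PTH 1 (adjusted p = 3.05e-06). Cyp3a41b had 0 to 0.31 CPM (median 0) in CCl4 livers and 0 to 9.53 CPM (median 0.992) in CCl4_PTH livers; its rise lost its call in 9 of the 12 leave-one-out fits (without CCl4 1, CCl4 2, CCl4 5, CCl4 7, CCl4 8, CCl4_PTH 2, CCl4_PTH 3, CCl4_PTH 6, CCl4_PTH 7, largest adjusted p = 0.117).

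Of 22 measured genes of the growth hormone and IGF axis, 5 rose (Ghr, Igf1, Igfals, Igfbp4 and Stat5b, Ghr, Igf1 and Stat5b in every leave-one-out fit) and 0 fell with all 12 libraries, 6 rose and 1 fell without CCl4_PTH 1, and 1 rose and 0 fell with size scaling alone. These 22 genes of the growth hormone and IGF axis had a median log2 fold change of 0.14, or 0.19 without CCl4_PTH 1. As a share of the list 22.7% rose, and 27.3% without CCl4_PTH 1, against 7.1% and 10.3% of all genes. Ghr, the growth hormone receptor, had 61.2 to 167 CPM in CCl4 (median 106) and 105 to 361 CPM in CCl4_PTH livers (median 301). The Ghr values of both groups overlapped only through CCl4_PTH 1, which lay among the CCl4 libraries at 105 CPM, while the other 5 lay above all of them. Ghr had a log2 fold change of 1.33 ± 0.27 (edgeR adjusted p = 0.00571), or 1.52 ± 0.22 without CCl4_PTH 1 (adjusted p = 0.000244). Igf1, the growth factor the liver makes in response to growth hormone, rose by 0.69 ± 0.16 (edgeR adjusted p = 0.012), or 0.61 ± 0.16 without CCl4_PTH 1 (adjusted p = 0.0122), and CCl4_PTH 1 had the highest level at 537 CPM. Stat5b rose by 0.42 ± 0.11 (0.52 ± 0.08 without CCl4_PTH 1), and neither Stat5b nor Igf1 passed with size scaling alone. The STAT5 sequence TTCNNNGAA, searched on both strands from 250 bases before to 50 after the start, was in the promoters of 4 of 23 male-biased genes with a promoter, against 9.55% of all genes with a RefSeq promoter (8.3% of promoters). Only 2 of those 4 rose, out of 11 male-biased genes that rose and had a promoter.

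A part of the enzymes and transporters that clear drugs and bile acids rose. Of 30 measured drug-metabolising P450 genes and their regulators, 9 rose and 0 fell with all 12 libraries, and 16 rose and 0 fell without CCl4_PTH 1. These 30 drug-metabolising P450 genes and their regulators had a median log2 fold change of 0.89, or 1.06 without CCl4_PTH 1. The rises were 30.0% of them with all libraries and 53.3% without CCl4_PTH 1, against 7.1% and 10.3% of all genes. 5 of the 9 rises held in each of the 12 fits that left out 1 library. 6 (without CCl4 7 or CCl4_PTH 7) to 16 (without CCl4_PTH 1) of the measured genes rose in such a fit. Of 22 measured conjugating enzymes, 12 rose and 0 fell with all 12 libraries, and 15 rose and 0 fell without CCl4_PTH 1. These 22 conjugating enzymes had a median log2 fold change of 0.80, or 0.87 without CCl4_PTH 1. The rises were 54.5% of them with all libraries and 68.2% without CCl4_PTH 1, against 7.1% and 10.3% of all genes. 11 of the 12 rises held in each of the 12 fits that left out 1 library. 11 (in 6 of the 12 fits) to 15 (without CCl4 1 or CCl4_PTH 1) of the measured genes rose in such a fit. Cyp2j5, an arachidonic acid epoxygenase, had 71.7 to 156 CPM in CCl4 (median 115) and 179 to 274 CPM in CCl4_PTH livers (median 252). The Cyp2j5 values of both groups did not overlap, with CCl4_PTH 1 at 179 CPM. Cyp2j5 had a log2 fold change of 1.06 ± 0.16 (edgeR adjusted p = 0.000845), or 1.16 ± 0.16 without CCl4_PTH 1 (adjusted p = 0.000146). The sulfotransferase Sult1b1 rose by 1.4 ± 0.23 (1.5 ± 0.23 without CCl4_PTH 1), from a median of 3.55 CPM (2.22 to 5.65) to 9.34 CPM (7.13 to 14.2), and the glycosyltransferase Ugt3a2 by 0.82 ± 0.14 (0.85 ± 0.15 without CCl4_PTH 1), from a median of 93.7 CPM (66.3 to 123) to 177 CPM (134 to 193); neither overlapped between groups. The regulators Nr1i2 (PXR, 0.38 ± 0.14, and 0.35 ± 0.15 without CCl4_PTH 1) and Nr1i3 (CAR, 0.70 ± 0.32, and 0.71 ± 0.34 without CCl4_PTH 1), nuclear receptors for foreign compounds, did not pass.

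Of 20 measured bile acid synthesis genes, 9 rose and 0 fell with all 12 libraries, 11 rose and 0 fell without CCl4_PTH 1, and 5 rose and 0 fell with size scaling alone. These 20 bile acid synthesis genes had a median log2 fold change of 0.68, or 0.81 without CCl4_PTH 1. The rises were 45.0% of them with all libraries and 55.0% without CCl4_PTH 1, against 7.1% and 10.3% of all genes. 6 of the 9 rises held in each of the 12 fits that left out 1 library. 6 (in 6 of the 12 fits) to 11 (without CCl4 1 or CCl4_PTH 1) of the measured genes rose in such a fit. Slc27a5, which activates bile acids for conjugation, rose by 1.12 ± 0.19 (1.19 ± 0.19 without CCl4_PTH 1), from a median of 187 CPM (110.1 to 263) to 422 CPM (327 to 481). Scp2, a peroxisomal thiolase that shortens the bile acid side chain, rose from a median of 727 CPM (514 to 918) to 1376 CPM (1134 to 1701) (0.95 ± 0.15, and 1.02 ± 0.15 without CCl4_PTH 1). Of 22 measured hepatocyte transporters, 12 rose and 1 fell (Abcc4, in every leave-one-out fit) with all 12 libraries, and 12 rose and 1 fell without CCl4_PTH 1. These 22 hepatocyte transporters had a median log2 fold change of 0.79, or 0.88 without CCl4_PTH 1. The rises were 54.5% of them with all libraries and 54.5% without CCl4_PTH 1, against 7.1% and 10.3% of all genes. 10 of the 12 rises held in each of the 12 fits that left out 1 library. 10 (without CCl4 4, CCl4 7, CCl4_PTH 3, CCl4_PTH 6 or CCl4_PTH 7) to 13 (without CCl4 1) of the measured genes rose in such a fit. Abcg8, which with Abcg5 pumps sterols into bile, had 11.6 to 19.2 CPM in CCl4 (median 15) and 24.3 to 68.4 CPM in CCl4_PTH livers (median 50.2). The Abcg8 values of both groups did not overlap, with CCl4_PTH 1 at 24.3 CPM. Abcg8 had a log2 fold change of 1.73 ± 0.19 (edgeR adjusted p = 4.21e-05), or 1.89 ± 0.14 without CCl4_PTH 1 (adjusted p = 4.06e-07). Abcg5, its partner, rose by 1.43 ± 0.18 (1.57 ± 0.15 without CCl4_PTH 1), the bile salt export pump Abcb11 by 1.39 ± 0.29 (1.58 ± 0.24 without CCl4_PTH 1), and the uptake carrier Slco1b2 by 1.19 ± 0.27 (1.32 ± 0.26 without CCl4_PTH 1). Abcc4, an exporter at the blood side that cholestasis induces, had 19.7 to 32.2 CPM in CCl4 (median 25.4) and 6.29 to 11.6 CPM in CCl4_PTH livers (median 8.06). The Abcc4 values of both groups did not overlap, with CCl4_PTH 1 at 6.97 CPM. Abcc4 had a log2 fold change of −1.58 ± 0.18 (edgeR adjusted p = 6.02e-05), or −1.51 ± 0.19 without CCl4_PTH 1 (adjusted p = 5.78e-05).

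Most genes of cholesterol synthesis rose. Sterol shortage releases SREBP2, which switches on these enzymes. Of 25 measured cholesterol synthesis and uptake genes, 20 rose and 0 fell with all 12 libraries, and 19 rose and 0 fell without CCl4_PTH 1. These 25 cholesterol synthesis and uptake genes had a median log2 fold change of 1.19, or 1.1 without CCl4_PTH 1. 80.0% were higher against 7.1% of all genes, and 76.0% against 10.3% without CCl4_PTH 1. 16 of the 20 rises held in each of the 12 fits that left out 1 library. 16 (without CCl4 4) to 20 (without CCl4 1, CCl4 5, CCl4_PTH 2, CCl4_PTH 6 or CCl4_PTH 7) of the measured genes rose in such a fit. All 6 CCl4_PTH libraries lay above all CCl4 libraries for 17 of the 25 genes, as in 2.2% of all genes. CCl4_PTH 1 lay above every CCl4 library for 25 of 25, and for 4307 of all 21840 genes tested. Its list score, the mean log2 CPM of the members, was 6.39. That score was 5.53 to 6.13 in the other 5 and 4.34 to 5.02 in CCl4. In control livers the score ran from 4.26 to 6.07.

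Promoters of Hmgcs1 and Acat2, which hold the sterol response element core, are shown with that of Insig1, which has the smallest p among the members with a promoter, to set the shared letters beside the rises. Capitals mark CACCNCAC, the core searched for, and the CCAAT box (CCAAT), both looked for on both strands. Sequences are the 250 bases before the RefSeq start, 5′ to 3′ on the gene's strand.
Hmgcs1 (GRCm38.p6, chr13:119690101-119690350, + strand): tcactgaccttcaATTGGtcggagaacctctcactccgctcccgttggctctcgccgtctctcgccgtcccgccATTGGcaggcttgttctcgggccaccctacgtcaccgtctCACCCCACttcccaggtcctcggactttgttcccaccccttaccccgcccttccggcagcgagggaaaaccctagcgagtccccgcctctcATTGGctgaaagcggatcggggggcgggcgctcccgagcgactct
Acat2 (GRCm38.p6, chr17:12960726-12960975, - strand): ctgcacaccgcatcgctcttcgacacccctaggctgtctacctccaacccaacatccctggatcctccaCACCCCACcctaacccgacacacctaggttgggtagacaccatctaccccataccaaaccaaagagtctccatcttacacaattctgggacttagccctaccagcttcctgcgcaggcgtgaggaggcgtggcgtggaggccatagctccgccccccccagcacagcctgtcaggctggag
Insig1 (GRCm38.p6, chr5:28071162-28071411, + strand): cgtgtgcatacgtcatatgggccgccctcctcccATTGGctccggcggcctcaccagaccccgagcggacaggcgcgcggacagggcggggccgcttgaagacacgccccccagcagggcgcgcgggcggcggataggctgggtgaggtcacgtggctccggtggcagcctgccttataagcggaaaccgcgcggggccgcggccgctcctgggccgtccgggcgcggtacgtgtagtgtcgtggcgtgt
Of the 25 genes, 17 had a RefSeq promoter (window from 250 bases before to 50 after the start, GRCm38.p6). The core was in 3 of them (Hmgcs1, Acat2 and Hsd17b7, all of which rose), against 7.22% of all 27025 genes with a promoter (6.32% of their 32851 promoters). A CCAAT box was in 16 of the 17, against 41.1% of all such genes (37.4% of promoters). A gene counts where any of its promoters holds the letters. A match is a run of letters, not a shown binding site.

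Hmgcs1, the enzyme that makes HMG-CoA, had 69.2 to 123 CPM in CCl4 (median 90.2) and 162 to 465 CPM in CCl4_PTH livers (median 261). The Hmgcs1 values of both groups did not overlap, with CCl4_PTH 1 at 465 CPM. Hmgcs1 had a log2 fold change of 1.58 ± 0.31 (edgeR adjusted p = 0.00413), or 1.41 ± 0.30 without CCl4_PTH 1 (adjusted p = 0.00343). Insig1, the sterol-regulated anchor of SREBP in the endoplasmic reticulum, had 38.9 to 84.3 CPM in CCl4 (median 56.4) and 152 to 251 CPM in CCl4_PTH livers (median 170.3). The Insig1 values of both groups did not overlap, with CCl4_PTH 1 at 162 CPM. Insig1 had a log2 fold change of 1.66 ± 0.25 (edgeR adjusted p = 0.000721), or 1.71 ± 0.26 without CCl4_PTH 1 (adjusted p = 0.000348). Acat2, a thiolase at the head of the pathway, rose by 1.14 ± 0.21 (1.19 ± 0.23 without CCl4_PTH 1) and the isomerase Idi1 by 1.98 ± 0.43 (1.75 ± 0.42 without CCl4_PTH 1). Hsd17b7, a late enzyme, rose by 0.82 ± 0.25 (0.43 ± 0.14 without CCl4_PTH 1) and lost its call in 4 of the 12 leave-one-out fits (without CCl4 1, CCl4 2, CCl4 4, CCl4 7, largest adjusted p = 0.103). Sqle, squalene epoxidase, did not pass: CCl4 livers had 22.6 to 44.1 CPM (median 28.5), the other 5 CCl4_PTH livers 25.3 to 57.2 CPM (median 37.1) and CCl4_PTH 1 146 CPM (log2 fold change 0.82 ± 0.47, adjusted p = 0.273, and 0.31 ± 0.40, adjusted p = 0.668, without CCl4_PTH 1). Lss, the next enzyme, passed with all libraries (0.92 ± 0.27) and not without CCl4_PTH 1 (0.67 ± 0.24, adjusted p = 0.0574), and lost its call in 6 of the 12 leave-one-out fits (without CCl4 4, CCl4 7, CCl4 8, CCl4_PTH 1, CCl4_PTH 3, CCl4_PTH 8, largest adjusted p = 0.0882).

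Of 22 measured lipogenesis genes, 9 rose and 0 fell with all 12 libraries, 11 rose and 0 fell without CCl4_PTH 1, and 5 rose and 0 fell with size scaling alone. These 22 lipogenesis genes had a median log2 fold change of 0.92, or 1.06 without CCl4_PTH 1. 6 of the 9 rises held in each of the 12 fits that left out 1 library. 6 (without CCl4 4) to 11 (without CCl4_PTH 1) of the measured genes rose in such a fit. Srebf1, the SREBP1 gene, whose product drives fatty acid synthesis, had 32.4 to 60.4 CPM in CCl4 (median 49.9) and 23 to 294 CPM in CCl4_PTH livers (median 205). The Srebf1 values of both groups overlapped only through CCl4_PTH 1, which lay below all CCl4 libraries at 23 CPM, while the other 5 lay above all of them. Srebf1 had a log2 fold change of 1.96 ± 0.42 (edgeR adjusted p = 0.00713), or 2.21 ± 0.26 without CCl4_PTH 1 (adjusted p = 4.11e-05). Fads1, a fatty acid desaturase, had 55.4 to 113 CPM in CCl4 (median 90.8) and 112 to 219 CPM in CCl4_PTH livers (median 205). The Fads1 values of both groups overlapped only through CCl4_PTH 1, which lay among the CCl4 libraries at 112 CPM, while the other 5 lay above all of them. Fads1 had a log2 fold change of 1.08 ± 0.23 (edgeR adjusted p = 0.00649), or 1.21 ± 0.22 without CCl4_PTH 1 (adjusted p = 0.00105). Fasn, fatty acid synthase, rose by 2.16 ± 0.62 (2.34 ± 0.64 without CCl4_PTH 1) and lost its call in 5 of the 12 leave-one-out fits (without CCl4 4, CCl4 7, CCl4_PTH 3, CCl4_PTH 6, CCl4_PTH 8, largest adjusted p = 0.0833). Of 34 measured fatty acid oxidation genes, 2 rose, Ppara among them, and 1 fell (Acot2, in every leave-one-out fit) with all 12 libraries, and 6 rose and 3 fell without CCl4_PTH 1. Rises made up 5.88% and falls 2.94% of this list, against 7.1% and 4.95% of all genes. Without CCl4_PTH 1 these were 17.6% and 8.82%, against 10.3% and 7.06%. These 34 fatty acid oxidation genes had a median log2 fold change of 0.04, or −0.004 without CCl4_PTH 1. The median was −0.04 with size scaling alone. Acot2, a mitochondrial thioesterase, fell from a median of 16.7 CPM (13.6 to 19.6) to 4.9 CPM (3.6 to 9.44) (−1.62 ± 0.41, and −1.83 ± 0.43 without CCl4_PTH 1).

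Some genes of the respiratory chain and of the clock rose. Of 26 measured nuclear genes of the respiratory chain, 10 rose and 0 fell with all 12 libraries, 23 rose and 0 fell without CCl4_PTH 1, and 0 rose and 0 fell with size scaling alone. These 26 nuclear genes of the respiratory chain had a median log2 fold change of 0.40, or 0.50 without CCl4_PTH 1. 2 of the 10 rises held in each of the 12 fits that left out 1 library. 2 (without CCl4 4, CCl4 7, CCl4_PTH 6 or CCl4_PTH 7) to 23 (without CCl4_PTH 1) of the measured genes rose in such a fit. All 26 had positive log2 fold changes in both TMM fits. Sdha, a subunit of complex II, had 96.2 to 155 CPM (median 134) in CCl4 and 200.4 to 247 CPM (median 221.5) in the other 5 CCl4_PTH livers, with CCl4_PTH 1 at 110.5 CPM (log2 fold change 0.67 ± 0.16, adjusted p = 0.0121, and 0.82 ± 0.12, adjusted p = 0.000184, without CCl4_PTH 1). Of 20 measured clock genes, 7 rose and 0 fell with all 12 libraries, 11 rose and 2 fell without CCl4_PTH 1, and 2 rose and 0 fell with size scaling alone. These 20 clock genes had a median log2 fold change of 0.61, or 0.72 without CCl4_PTH 1. 3 of the 7 rises held in each of the 12 fits that left out 1 library. 3 (without CCl4 4, CCl4 7, CCl4_PTH 3, CCl4_PTH 6 or CCl4_PTH 7) to 12 (without CCl4 1) of the measured genes rose in such a fit. Nr1d2, a repressor of the clock, rose by 0.81 ± 0.16 (0.90 ± 0.16 without CCl4_PTH 1) and Tef, a clock output factor, by 1.0 ± 0.22 (1.12 ± 0.21 without CCl4_PTH 1), while Arntl, a core activator of the clock, was at −0.78 ± 0.39 with all libraries and fell by 1.2 on the log2 scale without CCl4_PTH 1 (adjusted p = 0.0177). The sources used here give no hour at which the livers were taken.

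Of 28 measured genes of the urea cycle and amino acid breakdown, 5 rose (Aass, Fah, Hgd, Hpd and Tdo2, Fah in every leave-one-out fit) and 0 fell with all 12 libraries, 9 rose and 1 fell without CCl4_PTH 1, and 1 rose and 0 fell with size scaling alone. These 28 genes of the urea cycle and amino acid breakdown had a median log2 fold change of 0.52, or 0.49 without CCl4_PTH 1. As a share of the list 17.9% rose, and 32.1% without CCl4_PTH 1, against 7.1% and 10.3% of all genes. 1 of the 5 rises held in each of the 12 fits that left out 1 library. 1 (without CCl4 2, CCl4 4, CCl4 7, CCl4_PTH 6 or CCl4_PTH 7) to 14 (without CCl4 1) of the measured genes rose in such a fit. Fah, which completes tyrosine breakdown, rose by 0.70 ± 0.18 (0.76 ± 0.18 without CCl4_PTH 1), and did not pass in a fit of the 12 libraries without controls (adjusted p = 0.055). Of 18 measured genes of glucose and glycogen metabolism, 2 rose (Foxo1 and Gys2, Gys2 in every leave-one-out fit) and 1 fell (Pck2, in every leave-one-out fit) with all 12 libraries, 4 rose and 1 fell without CCl4_PTH 1, and 1 rose and 1 fell with size scaling alone. Rises made up 11.1% and falls 5.56% of this list, against 7.1% and 4.95% of all genes. Without CCl4_PTH 1 these were 22.2% and 5.56%, against 10.3% and 7.06%. These 18 genes of glucose and glycogen metabolism had a median log2 fold change of 0.37, or 0.37 without CCl4_PTH 1. Glycogen synthase Gys2 rose by 0.99 ± 0.24 (1.16 ± 0.20 without CCl4_PTH 1), and Pck2, the mitochondrial PEP carboxykinase, fell by 0.58 (−0.62 without CCl4_PTH 1) on the log2 scale. Of 35 measured secreted hepatocyte proteins, 9 rose and 0 fell with all 12 libraries, 12 rose and 2 fell without CCl4_PTH 1, and 4 rose and 0 fell with size scaling alone. These 35 secreted hepatocyte proteins had a median log2 fold change of 0.49, or 0.47 without CCl4_PTH 1. 3 of the 9 rises held in each of the 12 fits that left out 1 library. 3 (without CCl4 7 or CCl4_PTH 7) to 18 (without CCl4 8) of the measured genes rose in such a fit. F11, coagulation factor XI (chr8:45241174-45262031), had 11.7 to 19.1 CPM in CCl4 (median 14.9) and 36.5 to 57.2 CPM in CCl4_PTH livers (median 45.8). The F11 values of both groups did not overlap, with CCl4_PTH 1 at 52.8 CPM. F11 had a log2 fold change of 1.6 ± 0.14 (edgeR adjusted p = 5.42e-06), or 1.58 ± 0.14 without CCl4_PTH 1 (adjusted p = 2.82e-06). Serpina3k, a plasma protease inhibitor, had 649 to 1201 CPM (median 903) in CCl4, 1843 to 3367 CPM (median 2023) in the other 5 CCl4_PTH livers and 6700.1 CPM in CCl4_PTH 1 (log2 fold change 1.77 ± 0.29, adjusted p = 0.00125, and 1.41 ± 0.20, adjusted p = 0.000189, without CCl4_PTH 1). Of 22 measured hepatocyte transcription factors, 3 rose (Cebpa, Ppara and Stat5b, Stat5b in every leave-one-out fit) and 0 fell with all 12 libraries, 4 rose and 0 fell without CCl4_PTH 1, and 1 rose and 0 fell with size scaling alone. Rises made up 13.6% of these factors, and 18.2% without CCl4_PTH 1, against 7.1% and 10.3% of all genes. These 22 hepatocyte transcription factors had a median log2 fold change of 0.27, or 0.31 without CCl4_PTH 1. Hnf4a, the master regulator of hepatocytes, was at 0.29 ± 0.19 (0.14 ± 0.17 without CCl4_PTH 1) and did not pass.

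**Figure D4:**
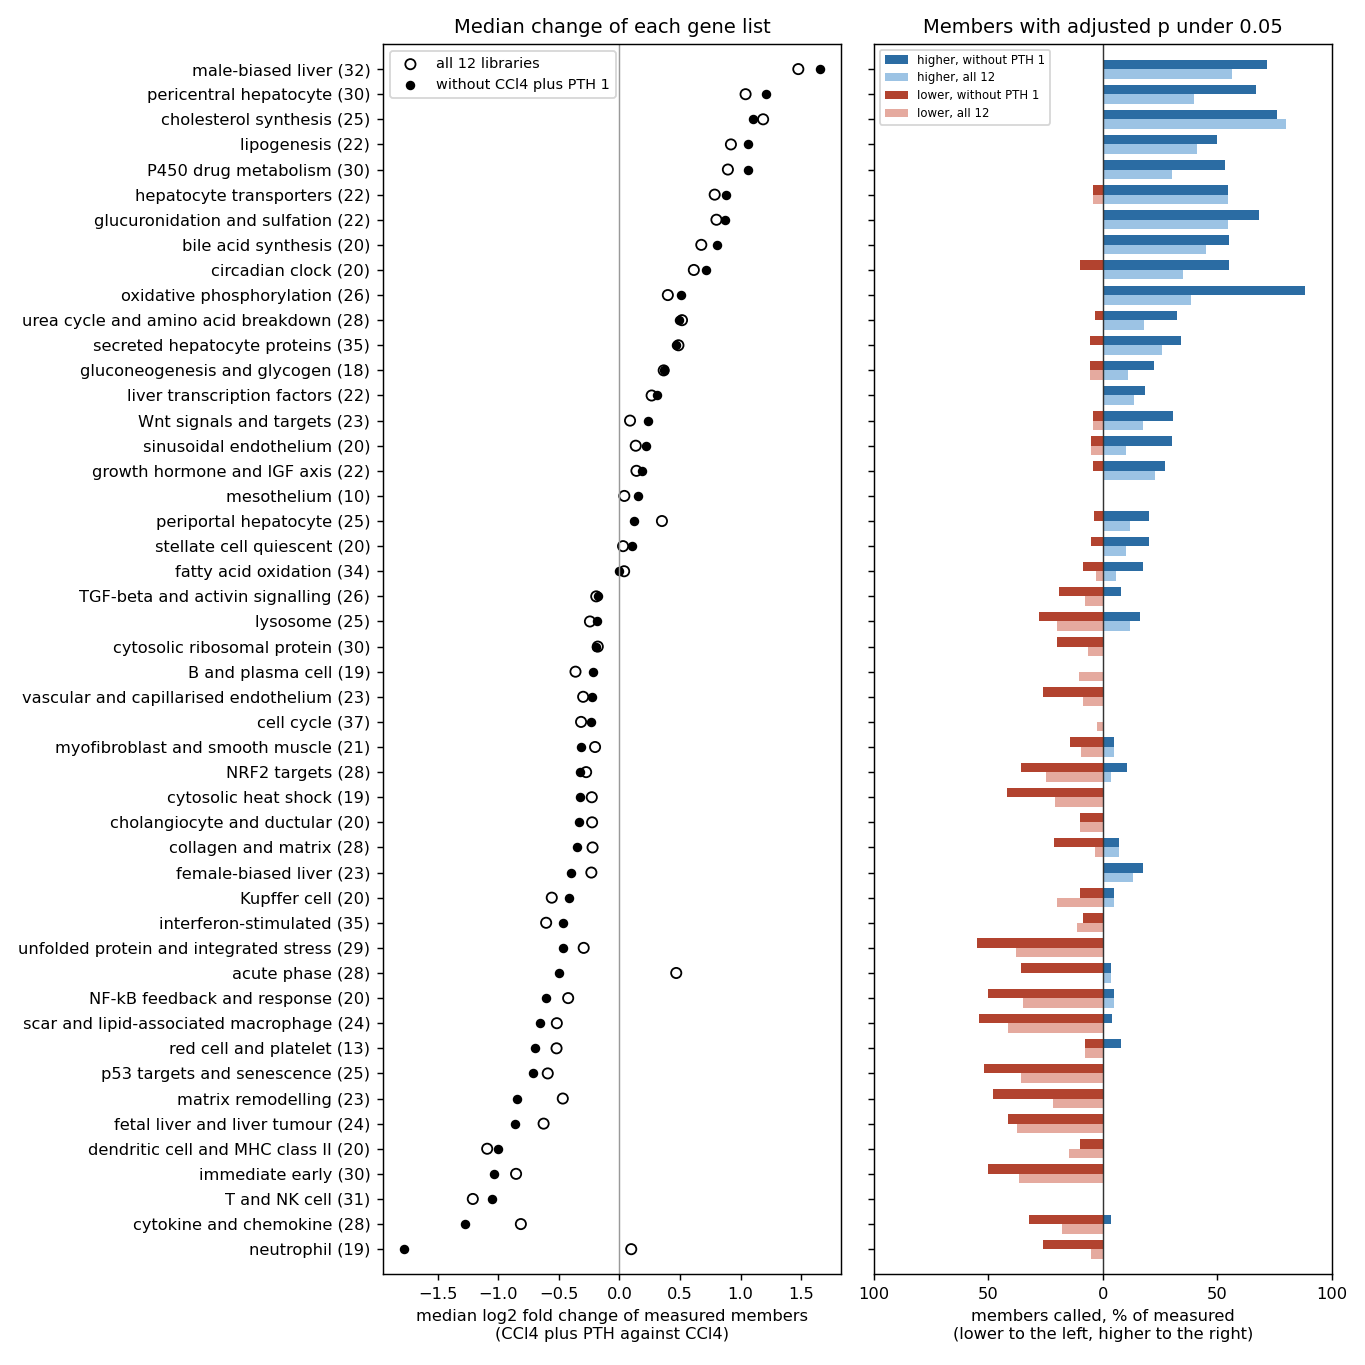
Left: the median log2 fold change (CCl4_PTH over CCl4) of each list with at least 10 measured members, with all 12 libraries (open circles) and without CCl4_PTH 1 (filled circles), the number of members in brackets. Right: the percentage of members called lower (to the left) and higher (to the right) in each fit. The acute phase and neutrophil medians change sign between the fits, from 0.47 to −0.50 and from 0.10 to −1.78.

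In the acute phase genes CCl4_PTH 1 stood apart from the other 5 libraries of its group. These plasma proteins are made by hepatocytes in response to interleukin 6. Of 28 measured acute phase genes, 1 rose (Saa4, in every leave-one-out fit) and 0 fell with all 12 libraries, and 1 rose and 10 fell without CCl4_PTH 1. These 28 acute phase genes had a median log2 fold change of 0.47, or −0.50 without CCl4_PTH 1. CCl4_PTH 1 lay above every CCl4 library for 26 of the 28, and for 4307 of all 21840 genes tested. Its list score was 9.51, against 5.99 to 6.49 in the other 5 and 6.49 to 7.73 in CCl4 livers. Apcs, serum amyloid P and a major acute phase protein of mice, had 44.6 to 124 CPM (median 55.3) in CCl4 livers, 19.5 to 26 CPM (median 22.6) in the other 5 CCl4_PTH livers and 1118 CPM in CCl4_PTH 1 (log2 fold change 1.52 ± 0.93, adjusted p = 0.313, and −1.66 ± 0.24, adjusted p = 0.000255, without CCl4_PTH 1). Lcn2, lipocalin 2, an iron-binding protein of injured hepatocytes and neutrophils, had 61 to 511 CPM (median 121) in CCl4 livers, 16.3 to 25.6 CPM (median 18.8) in the other 5 CCl4_PTH livers and 1475 CPM in CCl4_PTH 1 (log2 fold change 0.45 ± 1.04, adjusted p = 0.832, and −3.26 ± 0.47, adjusted p = 0.000291, without CCl4_PTH 1). The other 5 libraries lay below all CCl4 libraries for both genes, and CCl4_PTH 1 above them. Serum amyloid A1 (Saa1) had 10.9 to 165 CPM (median 22.9), 18 to 58.9 CPM (median 20.7) and 1912 CPM in the same order and did not pass in either fit (log2 fold change 2.91 ± 1.15, adjusted p = 0.108, and −0.48 ± 0.60, adjusted p = 0.66, without CCl4_PTH 1). Its neighbour Saa2, nearly identical in sequence, did not pass either (adjusted p = 0.104 and 0.413). Saa4, the constitutive serum amyloid A, had 24.3 to 55.1 CPM in CCl4 (median 40.4) and 78.2 to 122 CPM in CCl4_PTH livers (median 93.7). The Saa4 values of both groups did not overlap, with CCl4_PTH 1 at 122 CPM. Saa4 had a log2 fold change of 1.29 ± 0.16 (edgeR adjusted p = 0.000205), or 1.23 ± 0.16 without CCl4_PTH 1 (adjusted p = 0.000101).

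Of 19 measured neutrophil markers, 0 rose and 1 fell (Fpr2, but not in every leave-one-out fit) with all 12 libraries, 0 rose and 5 fell without CCl4_PTH 1, and 0 rose and 0 fell with size scaling alone. Falls made up 5.26% of the list, and 26.3% without CCl4_PTH 1, against 4.95% and 7.06% of all genes. These 19 neutrophil markers had a median log2 fold change of 0.10, or −1.78 without CCl4_PTH 1. Their summed level was 95.5 to 673 CPM in CCl4, 49.9 to 66.5 CPM in the other 5 CCl4_PTH libraries and 1759 CPM in CCl4_PTH 1. The defining markers S100a8, S100a9, Ly6g and Retnlg summed to 5.46 to 66.5 CPM in CCl4, 4.12 to 11.4 CPM in the other 5 CCl4_PTH libraries and 140.4 CPM in CCl4_PTH 1. The median of the list was −0.06 with size scaling alone. Cxcl2, a neutrophil chemokine, was at 0.259 to 1.9 CPM (median 1.17), 0.109 to 0.50 CPM (median 0.174) and 15.5 CPM in CCl4, the other 5 CCl4_PTH and CCl4_PTH 1 livers (log2 fold change 1.3 ± 1.09, adjusted p = 0.491, and −2.24 ± 0.70, adjusted p = 0.0341, without CCl4_PTH 1). Chil3, a chitinase-like protein of myeloid cells, had 1.11 to 10.9 CPM (median 8.42), 0.335 to 2.7 CPM (median 0.556) and 45.7 CPM in that order (log2 fold change 0.34 ± 1.08, adjusted p = 0.883, and −2.81 ± 0.79, adjusted p = 0.0214, without CCl4_PTH 1). Both Cxcl2 and Chil3 fell without CCl4_PTH 1 and had positive log2 fold changes with it. The part of neutrophils in the acute phase values was not tested.

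Some macrophage markers fell in CCl4_PTH livers. Of 24 measured markers of scar and lipid-associated macrophages, 0 rose and 10 fell with all 12 libraries, and 1 rose and 13 fell without CCl4_PTH 1. These 24 markers of scar and lipid-associated macrophages had a median log2 fold change of −0.52, or −0.65 without CCl4_PTH 1. 41.7% were lower, against 4.95% of all genes, and 54.2% against 7.06% without CCl4_PTH 1. 6 of the 10 falls held in each of the 12 fits that left out 1 library. 6 (without CCl4 4 or CCl4 7) to 13 (without CCl4_PTH 1) of the measured genes fell in such a fit. The summed level of the list was 5675 to 6660.0 CPM in CCl4, 5509 to 7358 CPM in the other 5 CCl4_PTH libraries and 7138 CPM in CCl4_PTH 1. Its 4 defining markers summed to 155 to 278 CPM in CCl4, 99.4 to 182 CPM in the other 5 CCl4_PTH libraries and 320.2 CPM in CCl4_PTH 1, the last above every CCl4 library. Ccr2, the receptor that brings monocytes into the injured liver, had 10.7 to 26.5 CPM in CCl4 (median 13.6) and 2.71 to 9.37 CPM in CCl4_PTH livers (median 7.3). The Ccr2 values of both groups did not overlap, with CCl4_PTH 1 at 2.71 CPM. Ccr2 had a log2 fold change of −1.39 ± 0.28 (edgeR adjusted p = 0.00503), or −1.21 ± 0.25 without CCl4_PTH 1 (adjusted p = 0.00271). Mmp12, macrophage elastase, had 16.1 to 91 CPM in CCl4 (median 55.8) and 8.75 to 17.6 CPM in CCl4_PTH livers (median 10.3). The Mmp12 values of both groups overlapped, also without CCl4_PTH 1, which had 15.1 CPM. Mmp12 had a log2 fold change of −2.17 ± 0.47 (edgeR adjusted p = 0.0077), or −2.23 ± 0.50 without CCl4_PTH 1 (adjusted p = 0.00617). Trem2, a lipid receptor of scar macrophages, fell from a median of 8.84 CPM (6.47 to 11.6) to 3.94 CPM (2.96 to 5.97) (−1.07 ± 0.24, and −1.0 ± 0.25 without CCl4_PTH 1), and the lectin Lgals3 from a median of 42.3 CPM (19.2 to 100.1) to 19 CPM (13.5 to 23.2) (−1.43 ± 0.29, and −1.46 ± 0.31 without CCl4_PTH 1). Ctsd, a lysosomal protease, fell from a median of 359 CPM (320.1 to 444) to 259 CPM (223 to 287) (−0.53 ± 0.10, and −0.53 ± 0.11 without CCl4_PTH 1). Gpnmb, a glycoprotein of the same cells, had 53.1 to 95.8 CPM (median 74.6) in CCl4 and 40.1 to 77.2 CPM (median 52.3) in CCl4_PTH livers and did not pass (log2 fold change −0.37 ± 0.20, adjusted p = 0.24, and −0.33 ± 0.21, adjusted p = 0.313, without CCl4_PTH 1).

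Of 20 measured Kupffer cell markers, 1 rose (Clec4f, but not in every leave-one-out fit) and 4 fell (C1qb, C1qc, Cd68 and Hmox1, Cd68 and Hmox1 in every leave-one-out fit) with all 12 libraries, 1 rose and 2 fell without CCl4_PTH 1, and 0 rose and 2 fell with size scaling alone. These 20 Kupffer cell markers had a median log2 fold change of −0.56, or −0.41 without CCl4_PTH 1. As a share of the list 20% fell, and 10% without CCl4_PTH 1, against 4.95% and 7.06% of all genes. Rises were 5% in both fits, against 7.1% and 10.3%. Cd68, a lysosomal protein of macrophages, fell by 1.08 (−1.04 without CCl4_PTH 1) on the log2 scale and heme oxygenase Hmox1 by 1.52 (−1.7 without CCl4_PTH 1). Clec4f, specific to resident Kupffer cells, rose by 0.41 ± 0.12 (0.48 ± 0.12 without CCl4_PTH 1) and lost its call in 7 of the 12 leave-one-out fits (without CCl4 2, CCl4 4, CCl4 7, CCl4_PTH 2, CCl4_PTH 3, CCl4_PTH 6, CCl4_PTH 7, largest adjusted p = 0.0766). The defining markers Clec4f, Timd4, Vsig4 and Marco summed to 61.5 to 170.1 CPM in CCl4, 73.6 to 137 CPM in the other 5 CCl4_PTH libraries and 63.9 CPM in CCl4_PTH 1. Lymphocyte markers varied widely between livers. Of 31 measured T and NK cell genes, 0 passed in either fit, and their medians were −1.21 and −1.05. Their sum was 19.3 to 108 CPM in CCl4, 19.6 to 36.3 CPM in the other 5 CCl4_PTH libraries and 19.3 CPM in CCl4_PTH 1. Leaving out CCl4 8 brought 3 of them to a fall and leaving out CCl4 5 brought 2. Of 19 measured B and plasma cell genes, 0 rose and 2 fell (Cd22 and Prdm1, none in every leave-one-out fit) with all 12 libraries, 0 rose and 0 fell without CCl4_PTH 1, and 0 rose and 0 fell with size scaling alone. These 19 B and plasma cell genes had a median log2 fold change of −0.36, or −0.22 without CCl4_PTH 1. Prdm1, a factor of plasma cells, lost its call in 9 of the 12 leave-one-out fits (without CCl4 2, CCl4 4, CCl4 7, CCl4_PTH 1, CCl4_PTH 2, CCl4_PTH 3, CCl4_PTH 6, CCl4_PTH 7, CCl4_PTH 8, largest adjusted p = 0.153), and the B cell receptor partner Cd22 lost its call in 8 of the 12 leave-one-out fits (without CCl4 4, CCl4 7, CCl4_PTH 1, CCl4_PTH 2, CCl4_PTH 3, CCl4_PTH 6, CCl4_PTH 7, CCl4_PTH 8, largest adjusted p = 0.167). Of 20 measured genes of dendritic cells and MHC class II, 0 rose and 3 fell (Batf3, Cd86 and H2-DMb1, none in every leave-one-out fit) with all 12 libraries, and 0 rose and 2 fell without CCl4_PTH 1. Their falls made up 15% of the list, and 10% without CCl4_PTH 1, against 4.95% and 7.06% of all genes. These 20 genes of dendritic cells and MHC class II had a median log2 fold change of −1.09, or −1.0 without CCl4_PTH 1. 0 of the 3 falls held in each of the 12 fits that left out 1 library. 0 (without CCl4 4 or CCl4_PTH 7) to 10 (without CCl4 8) of the measured genes fell in such a fit. Their sum was 231 to 1874 CPM in CCl4, 220.3 to 439.6 CPM in the other 5 CCl4_PTH libraries and 113 CPM in CCl4_PTH 1.

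Of 28 measured cytokines and chemokines, 0 rose and 5 fell (Ccl22, Cxcl10, Il33, Il34 and Tnf, Ccl22 in every leave-one-out fit) with all 12 libraries, 1 rose and 9 fell without CCl4_PTH 1, and 0 rose and 2 fell with size scaling alone. These 28 cytokines and chemokines had a median log2 fold change of −0.81, or −1.27 without CCl4_PTH 1. 1 of the 5 falls held in each of the 12 fits that left out 1 library. 1 (without CCl4 4) to 9 (without CCl4 1 or CCl4_PTH 1) of the measured genes fell in such a fit. Ccl22, a chemokine of macrophages and dendritic cells, had 0.454 to 2.2 CPM in CCl4 (median 1.34) and 0.14 to 0.328 CPM in CCl4_PTH livers (median 0.23). The Ccl22 values of both groups did not overlap, with CCl4_PTH 1 at 0.179 CPM. Ccl22 had a log2 fold change of −2.57 ± 0.66 (edgeR adjusted p = 0.017), or −2.48 ± 0.70 without CCl4_PTH 1 (adjusted p = 0.0201). Tnf, tumour necrosis factor, fell from a median of 1.64 CPM (1.06 to 8.72) to 0.765 CPM (0.506 to 1.01) (log2 fold change −2.01 ± 0.52, adjusted p = 0.0177, and −1.95 ± 0.56, adjusted p = 0.0221, without CCl4_PTH 1), and not without CCl4 4 (adjusted p = 0.0742). Of 20 measured NF-kB targets, 1 rose (Sod2, in every leave-one-out fit) and 7 fell with all 12 libraries, 1 rose and 10 fell without CCl4_PTH 1, and 0 rose and 3 fell with size scaling alone. These 20 NF-kB targets had a median log2 fold change of −0.42, or −0.60 without CCl4_PTH 1. 2 of the 7 falls held in each of the 12 fits that left out 1 library. 2 (without CCl4 4 or CCl4_PTH 7) to 10 (without CCl4_PTH 1) of the measured genes fell in such a fit. Tnip1, a brake on NF-kB, fell by 0.71 (−0.68 without CCl4_PTH 1) on the log2 scale, and the adhesion molecule Vcam1 from a median of 48.5 CPM (34.2 to 133) to 24.4 CPM (16.4 to 32.8) (−1.46 ± 0.29, and −1.54 ± 0.31 without CCl4_PTH 1). The 1 that rose, the mitochondrial superoxide dismutase Sod2, had 0.56 ± 0.09 (0.55 ± 0.09 without CCl4_PTH 1) and did not pass with size scaling alone. Of 35 measured interferon-stimulated genes, 0 rose and 4 fell (Gbp2, Isg20, Oasl2 and Rsad2, none in every leave-one-out fit) with all 12 libraries, 0 rose and 3 fell without CCl4_PTH 1, and 0 rose and 2 fell with size scaling alone. These 35 interferon-stimulated genes had a median log2 fold change of −0.60, or −0.47 without CCl4_PTH 1. 11.4% were lower against 4.95% of all genes, and 8.57% against 7.06% without CCl4_PTH 1. 0 of the 4 falls held in each of the 12 fits that left out 1 library. 0 (without CCl4 7 or CCl4_PTH 7) to 4 (without CCl4 1, CCl4 2, CCl4 8 or CCl4_PTH 8) of the measured genes fell in such a fit.

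**Figure D5:**
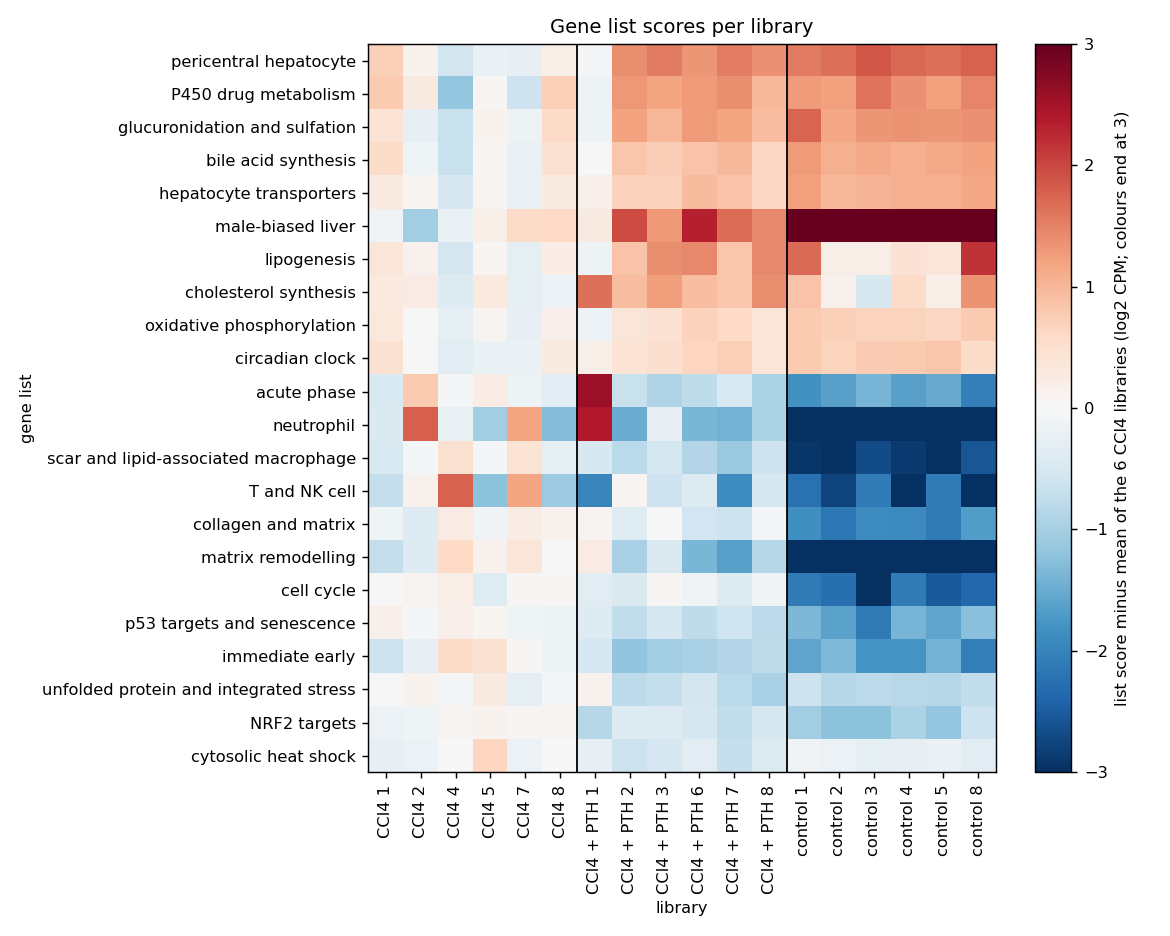
Heat map of list scores (mean log2 CPM of a list's measured members) for 22 lists (rows) in the 18 libraries (columns, controls on the right), each row centred on its mean over the 6 CCl4 libraries. The colour scale ends at 3 in both directions. CCl4_PTH 1 stands apart from the other 5 CCl4_PTH libraries in the acute phase and neutrophil lists, where it is high, and in the pericentral and P450 lists, where it lies at the level of CCl4 livers.

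Most collagen genes did not pass, while several enzymes that remodel the matrix fell. Of 28 measured collagen and matrix genes, 2 rose (Col18a1 and Col5a3, none in every leave-one-out fit) and 1 fell (Col4a2, but not in every leave-one-out fit) with all 12 libraries, 2 rose and 6 fell without CCl4_PTH 1, and 0 rose and 0 fell with size scaling alone. Rises made up 7.14% and falls 3.57% of the list, against 7.1% and 4.95% of all genes. Without CCl4_PTH 1 these were 7.14% and 21.4%, against 10.3% and 7.06%. These 28 collagen and matrix genes had a median log2 fold change of −0.22, or −0.35 without CCl4_PTH 1. In the same livers 25 were higher and 2 lower in CCl4 than in control livers (26.3% and 21.2% of all genes, 47.4% in all), a comparison that shares the 6 CCl4 libraries. Col1a1, a chain of type I collagen, had 86.4 to 197 CPM (median 131) in CCl4 livers, 57.9 to 132 CPM (median 75.7) in the other 5 CCl4_PTH livers and 268 CPM in CCl4_PTH 1 (log2 fold change −0.19 ± 0.36, adjusted p = 0.795, and −0.55 ± 0.31, adjusted p = 0.253, without CCl4_PTH 1). Control livers had 2.47 to 7.74 CPM. Col3a1, of type III collagen, was at −0.07 ± 0.28 (−0.26 ± 0.27 without CCl4_PTH 1) and did not pass. Col4a2, of basement membrane, fell by 0.59 (−0.73 without CCl4_PTH 1) on the log2 scale and lost its call in 6 of the 12 leave-one-out fits (without CCl4 4, CCl4 7, CCl4_PTH 2, CCl4_PTH 3, CCl4_PTH 6, CCl4_PTH 7, largest adjusted p = 0.068). Of 23 measured matrix remodelling genes, 0 rose and 5 fell (Mmp12, Mmp13, Mmp14, Pcolce and Plau, Mmp12, Mmp13, Mmp14 and Plau in every leave-one-out fit) with all 12 libraries, and 0 rose and 11 fell without CCl4_PTH 1. These 23 matrix remodelling genes had a median log2 fold change of −0.47, or −0.85 without CCl4_PTH 1. 4 of the 5 falls held in each of the 12 fits that left out 1 library. 4 (in 8 of the 12 fits) to 11 (without CCl4_PTH 1) of the measured genes fell in such a fit. Mmp13, a collagenase, had 0.557 to 12.8 CPM in CCl4 (median 8.36) and 0.468 to 1.14 CPM in CCl4_PTH livers (median 0.908). The Mmp13 values of both groups overlapped, also without CCl4_PTH 1, which had 0.885 CPM. Mmp13 had a log2 fold change of −3.18 ± 0.78 (edgeR adjusted p = 0.0148), or −3.19 ± 0.85 without CCl4_PTH 1 (adjusted p = 0.0161). Mmp14, a membrane-bound collagenase, had 47.1 to 80.8 CPM in CCl4 (median 65.9) and 27.4 to 63.8 CPM in CCl4_PTH livers (median 33.5). The Mmp14 values of both groups overlapped only through CCl4_PTH 1, which lay among the CCl4 libraries at 63.8 CPM, while the other 5 lay below all of them. Mmp14 had a log2 fold change of −0.79 ± 0.19 (edgeR adjusted p = 0.0111), or −0.99 ± 0.14 without CCl4_PTH 1 (adjusted p = 0.000223). Timp1, an inhibitor of these proteases, had 0.866 to 6.82 CPM (median 3.35), 0.428 to 3.13 CPM (median 0.707) and 13.8 CPM in CCl4, the other 5 CCl4_PTH and CCl4_PTH 1 livers and did not pass (log2 fold change −0.14 ± 0.75, adjusted p = 0.932, and −1.56 ± 0.58, adjusted p = 0.0716, without CCl4_PTH 1).

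Of 21 measured genes of myofibroblasts and smooth muscle, 1 rose (Mylk, but not in every leave-one-out fit) and 2 fell (Tpm1 and Vim, all in every leave-one-out fit) with all 12 libraries, 1 rose and 3 fell without CCl4_PTH 1, and 0 rose and 2 fell with size scaling alone. Falls made up 9.52% of the list, and 14.3% without CCl4_PTH 1, against 4.95% and 7.06% of all genes. Rises made up 4.76% in both fits, against 7.1% and 10.3%. These 21 genes of myofibroblasts and smooth muscle had a median log2 fold change of −0.20, or −0.32 without CCl4_PTH 1. Vimentin (Vim), an intermediate filament of mesenchymal cells, fell from a median of 53.3 CPM (47.3 to 128) to 40.6 CPM (24.2 to 45.7) (−0.87 ± 0.23, and −0.89 ± 0.24 without CCl4_PTH 1), and the tropomyosin Tpm1 by 0.70 (−0.81 without CCl4_PTH 1) on the log2 scale. Vim did not pass in an edgeR fit of the 12 libraries without controls (adjusted p = 0.0553). Acta2, an actin of smooth muscle and of stellate cells once activated, had 0.805 to 3.64 CPM (median 2.12) in CCl4, 0.73 to 3.16 CPM (median 1.53) in the other 5 CCl4_PTH livers and 10.6 CPM in CCl4_PTH 1 (log2 fold change 0.47 ± 0.53, adjusted p = 0.625, and −0.39 ± 0.40, adjusted p = 0.563, without CCl4_PTH 1), and did not pass. Of 20 measured markers of quiescent stellate cells, 2 rose (Colec10 and Vipr1, all in every leave-one-out fit) and 0 fell with all 12 libraries, and 4 rose and 1 fell without CCl4_PTH 1. These 20 markers of quiescent stellate cells had a median log2 fold change of 0.03, or 0.10 without CCl4_PTH 1. The median was −0.10 with size scaling alone. As a share of the list 10% rose, and 20% without CCl4_PTH 1, against 7.1% and 10.3% of all genes. Vipr1 is a receptor for vasoactive intestinal peptide (0.90 ± 0.15, and 0.91 ± 0.16 without CCl4_PTH 1) and Colec10 a collectin (0.80 ± 0.19, and 0.84 ± 0.20 without CCl4_PTH 1). Of 26 measured genes of TGF-beta and activin signalling, 0 rose and 2 fell (Tgfb1 and Tgfbi, Tgfb1 in every leave-one-out fit) with all 12 libraries, 2 rose and 5 fell without CCl4_PTH 1, and 0 rose and 1 fell with size scaling alone. These 26 genes of TGF-beta and activin signalling had a median log2 fold change of −0.19, or −0.18 without CCl4_PTH 1. As a share of the list 7.7% fell, and 19.2% without CCl4_PTH 1, against 4.95% and 7.06% of all genes. Tgfb1, the chief fibrosis signal, had 10.4 to 28.2 CPM in CCl4 (median 16.5) and 7.34 to 13.6 CPM in CCl4_PTH livers (median 9.43). The Tgfb1 values of both groups overlapped, also without CCl4_PTH 1, which had 7.34 CPM. Tgfb1 had a log2 fold change of −0.81 ± 0.20 (edgeR adjusted p = 0.0144), or −0.71 ± 0.21 without CCl4_PTH 1 (adjusted p = 0.0218).

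Genes of dividing cells mostly did not pass. Of 37 measured cell cycle genes, 0 rose and 1 fell (Mki67, but not in every leave-one-out fit) with all 12 libraries, 0 rose and 0 fell without CCl4_PTH 1, and 0 rose and 0 fell with size scaling alone. Falls made up 2.7% of the list, and 0% without CCl4_PTH 1, against 4.95% and 7.06% of all genes. These 37 cell cycle genes had a median log2 fold change of −0.32, or −0.23 without CCl4_PTH 1. Mki67, the proliferation antigen Ki-67, had 9.76 to 21 CPM (median 19.1) in CCl4 and 10.9 to 15.5 CPM (median 12) in CCl4_PTH livers (log2 fold change −0.50 ± 0.16, adjusted p = 0.0472, and −0.44 ± 0.17, adjusted p = 0.0831, without CCl4_PTH 1), and lost its call in 10 of the 12 leave-one-out fits (without CCl4 1, CCl4 2, CCl4 4, CCl4 7, CCl4 8, CCl4_PTH 1, CCl4_PTH 2, CCl4_PTH 3, CCl4_PTH 6, CCl4_PTH 7, largest adjusted p = 0.116). Of 24 measured genes of fetal liver and liver tumours, 0 rose and 9 fell with all 12 libraries, and 0 rose and 10 fell without CCl4_PTH 1. These 24 genes of fetal liver and liver tumours had a median log2 fold change of −0.63, or −0.86 without CCl4_PTH 1. 37.5% were lower, against 4.95% of all genes. 6 of the 9 falls held in each of the 12 fits that left out 1 library. 6 (without CCl4 4, CCl4 7, CCl4_PTH 3, CCl4_PTH 6 or CCl4_PTH 7) to 10 (without CCl4_PTH 1) of the measured genes fell in such a fit. Ly6d, a lipid-anchored surface protein, had 12.7 to 29.2 CPM in CCl4 (median 19.8) and 1.96 to 8.87 CPM in CCl4_PTH livers (median 3.11). The Ly6d values of both groups did not overlap, with CCl4_PTH 1 at 8.87 CPM. Ly6d had a log2 fold change of −2.3 ± 0.37 (edgeR adjusted p = 0.0014), or −2.7 ± 0.31 without CCl4_PTH 1 (adjusted p = 3.89e-05). Akr1c18, an aldo-keto reductase, fell from a median of 0.92 CPM (0.426 to 1.87) to 0.0762 CPM (0.0268 to 0.239) (−3.49 ± 0.60, and −3.37 ± 0.64 without CCl4_PTH 1), the RNA-binding protein Igf2bp2 from a median of 4.28 CPM (2.25 to 6.06) to 1.35 CPM (0.503 to 2.21) (−1.61 ± 0.31, and −1.79 ± 0.31 without CCl4_PTH 1) and the Golgi protein Golm1 by 1.03 (−1.13 without CCl4_PTH 1) on the log2 scale. Other well-known markers of fetal and tumour liver did not pass. Afp, alpha-fetoprotein, had 1.88 to 6.05 CPM (median 3.16) in CCl4 and 2.68 to 4.57 CPM (median 3.4) in CCl4_PTH livers (log2 fold change −0.06 ± 0.24, adjusted p = 0.916, and −0.13 ± 0.25, adjusted p = 0.782, without CCl4_PTH 1). Glypican 3 (Gpc3) was at −0.40 ± 0.38 (−0.39 ± 0.41 without CCl4_PTH 1) and H19, an imprinted noncoding RNA, at −1.39 ± 0.84 (−1.19 ± 0.87 without CCl4_PTH 1).

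Targets of p53, which respond to DNA damage, fell in part. Of 25 measured senescence genes and p53 targets, 0 rose and 9 fell with all 12 libraries, and 0 rose and 13 fell without CCl4_PTH 1. These 25 senescence genes and p53 targets had a median log2 fold change of −0.59, or −0.71 without CCl4_PTH 1. 36.0% were lower against 4.95% of all genes. 7 of the 9 falls held in each of the 12 fits that left out 1 library. 7 (without CCl4_PTH 2) to 13 (without CCl4_PTH 1) of the measured genes fell in such a fit. Aen, a p53-induced nuclease, had 11.1 to 14.1 CPM in CCl4 (median 11.6) and 5.94 to 10.05 CPM in CCl4_PTH livers (median 6.53). The Aen values of both groups did not overlap, with CCl4_PTH 1 at 10.05 CPM. Aen had a log2 fold change of −0.77 ± 0.12 (edgeR adjusted p = 0.00111), or −0.88 ± 0.10 without CCl4_PTH 1 (adjusted p = 2.26e-05). Mdm2, the ubiquitin ligase that holds p53 down, had 23.6 to 33.5 CPM in CCl4 (median 27.1) and 16.1 to 25.8 CPM in CCl4_PTH livers (median 16.6). The Mdm2 values of both groups overlapped only through CCl4_PTH 1, which lay among the CCl4 libraries at 25.8 CPM, while the other 5 lay below all of them. Mdm2 had a log2 fold change of −0.59 ± 0.13 (edgeR adjusted p = 0.00703), or −0.69 ± 0.11 without CCl4_PTH 1 (adjusted p = 0.000346). Cdkn1a, the p21 inhibitor of the cell cycle, depended on 1 library: CCl4 livers had 13.4 to 22.5 CPM (median 16.1), the other 5 CCl4_PTH livers 1.61 to 2.99 CPM (median 1.85), and CCl4_PTH 1 26.6 CPM. It fell without that library (−2.92 ± 0.23, adjusted p = 5.88e-07) and did not pass with it (−1.43 ± 0.60, adjusted p = 0.126).

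Many stress-response genes were lower in CCl4_PTH livers. Immediate early genes encode factors switched on within minutes of a stimulus. Of 30 measured immediate early genes, 0 rose and 11 fell with all 12 libraries, and 0 rose and 15 fell without CCl4_PTH 1. These 30 immediate early genes had a median log2 fold change of −0.85, or −1.04 without CCl4_PTH 1. 36.7% were lower, against 4.95% of all genes. 6 of the 11 falls held in each of the 12 fits that left out 1 library. 6 (without CCl4 4, CCl4_PTH 3, CCl4_PTH 6 or CCl4_PTH 7) to 15 (without CCl4_PTH 1) of the measured genes fell in such a fit. Atf3, a stress-induced repressor of the AP-1 family (chr1:191170296-191218039), had 6.99 to 21.3 CPM in CCl4 (median 15.1) and 1.08 to 2.92 CPM in CCl4_PTH livers (median 2.53). The Atf3 values of both groups did not overlap, with CCl4_PTH 1 at 2.55 CPM. Atf3 had a log2 fold change of −2.67 ± 0.38 (edgeR adjusted p = 0.000538), or −2.68 ± 0.41 without CCl4_PTH 1 (adjusted p = 0.000342). Ier5, a stress-induced regulator of heat shock factor, had 6.88 to 11.8 CPM in CCl4 (median 9.26) and 3.82 to 6.87 CPM in CCl4_PTH livers (median 4.25). The Ier5 values of both groups did not overlap, with CCl4_PTH 1 at 6.87 CPM. Ier5 had a log2 fold change of −0.95 ± 0.18 (edgeR adjusted p = 0.00317), or −1.06 ± 0.17 without CCl4_PTH 1 (adjusted p = 0.000368). Dusp5, a phosphatase that switches off ERK, had 1.55 to 7.77 CPM in CCl4 (median 4.72) and 0.935 to 2.72 CPM in CCl4_PTH livers (median 1.12). The Dusp5 values of both groups overlapped, also without CCl4_PTH 1, which had 2.72 CPM. Dusp5 had a log2 fold change of −1.71 ± 0.38 (edgeR adjusted p = 0.0079), or −1.99 ± 0.37 without CCl4_PTH 1 (adjusted p = 0.00139). Jun fell by 1.02 (−1.02 without CCl4_PTH 1) and Klf4 by 0.97 (−1.0 without CCl4_PTH 1) on the log2 scale. Fos, the partner of Jun in AP-1, had 1.24 to 6.84 CPM (median 3.5) in CCl4, 0.757 to 1.06 CPM (median 0.931) in the other 5 CCl4_PTH livers and 3.43 CPM in CCl4_PTH 1 (log2 fold change −1.52 ± 0.41, adjusted p = 0.0218, and −2.03 ± 0.35, adjusted p = 0.00068, without CCl4_PTH 1), and lost its call in 4 of the 12 leave-one-out fits (without CCl4 4, CCl4_PTH 3, CCl4_PTH 6, CCl4_PTH 7, largest adjusted p = 0.0578). Egr1 was at −0.74 ± 0.33 and did not pass, and fell without CCl4_PTH 1 (−1.06 ± 0.29, adjusted p = 0.0186).

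The Dusp5 promoter is shown because it holds 2 copies, end to end, of the CArG box bound by serum response factor, here in capitals; sequence and window are as above.
Dusp5 (GRCm38.p6, chr19:53528895-53529144, + strand): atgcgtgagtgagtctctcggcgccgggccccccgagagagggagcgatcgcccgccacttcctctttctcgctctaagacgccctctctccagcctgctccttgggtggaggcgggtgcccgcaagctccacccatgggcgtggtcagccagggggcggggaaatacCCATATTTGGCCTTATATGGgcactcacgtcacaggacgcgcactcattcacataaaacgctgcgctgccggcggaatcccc
Of 30 immediate early genes, 24 had a RefSeq promoter, and the CArG box was in 3 of them (Dusp5, Egr2 and Zfp36), against 1.81% of all genes with a promoter (1.63% of promoters). Dusp5 and Egr2 fell and Zfp36 did not pass, and Egr2 lost its call in 8 of the 12 leave-one-out fits (without CCl4 4, CCl4 5, CCl4 7, CCl4_PTH 2, CCl4_PTH 3, CCl4_PTH 6, CCl4_PTH 7, CCl4_PTH 8, largest adjusted p = 0.126). The cAMP response element TGACGTCA was in 3 of 24 (2.03% of all genes) and the AP-1 site TGACTCA in 1 (5.95%), on either strand, and none of those was a gene that fell.

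Of 29 measured genes of the unfolded protein response and of integrated stress, 0 rose and 11 fell with all 12 libraries, and 0 rose and 16 fell without CCl4_PTH 1. These 29 genes of the unfolded protein response and of integrated stress had a median log2 fold change of −0.29, or −0.47 without CCl4_PTH 1. 37.9% were lower, against 4.95% of all genes. 8 of the 11 falls held in each of the 12 fits that left out 1 library. 9 (without CCl4 2) to 16 (without CCl4_PTH 1) of the measured genes fell in such a fit. CCl4_PTH 1 lay above every CCl4 library for 12 of the 29, within their range for 13 and below all for 4. Over all 21840 genes tested these were 4307, 13701 and 3832. Its list score was 5.81, against 4.71 to 5.13 in the other 5 and 5.42 to 5.94 in CCl4 livers. Ddit3, CHOP, the death-promoting factor of this response (chr10:127290774-127296288), had 6.97 to 11.6 CPM in CCl4 (median 9.37) and 2.51 to 4.0 CPM in CCl4_PTH livers (median 2.97). The Ddit3 values of both groups did not overlap, with CCl4_PTH 1 at 4.0 CPM. Ddit3 had a log2 fold change of −1.56 ± 0.15 (edgeR adjusted p = 8.41e-06), or −1.63 ± 0.14 without CCl4_PTH 1 (adjusted p = 2.82e-06). Nupr1, a stress-induced nuclear protein, had 6.9 to 14 CPM in CCl4 (median 11.2) and 1.01 to 2.27 CPM in CCl4_PTH livers (median 1.73). The Nupr1 values of both groups did not overlap, with CCl4_PTH 1 at 2.12 CPM. Nupr1 had a log2 fold change of −2.74 ± 0.27 (edgeR adjusted p = 1.5e-05), or −2.79 ± 0.29 without CCl4_PTH 1 (adjusted p = 1.28e-05). Hspa5, BiP, the main chaperone of the endoplasmic reticulum, had 466 to 846 CPM in CCl4 (median 552) and 187 to 581 CPM in CCl4_PTH livers (median 228). The Hspa5 values of both groups overlapped only through CCl4_PTH 1, which lay among the CCl4 libraries at 581 CPM, while the other 5 lay below all of them. Hspa5 had a log2 fold change of −1.01 ± 0.24 (edgeR adjusted p = 0.0127), or −1.32 ± 0.17 without CCl4_PTH 1 (adjusted p = 8.33e-05). Creld2 fell by 1.5 (−2.0 without CCl4_PTH 1) and Manf by 0.93 (−1.22 without CCl4_PTH 1) on the log2 scale, both secreted products of that stress.

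Of 19 measured cytosolic heat shock genes, 0 rose and 4 fell (Bag3, Hspa1a, Hspa1b and Hspb1, Hspa1a, Hspa1b and Hspb1 in every leave-one-out fit) with all 12 libraries, and 0 rose and 8 fell without CCl4_PTH 1. These 19 cytosolic heat shock genes had a median log2 fold change of −0.23, or −0.33 without CCl4_PTH 1. 3 of the 4 falls held in each of the 12 fits that left out 1 library. 3 (in 6 of the 12 fits) to 8 (without CCl4_PTH 1) of the measured genes fell in such a fit. Hspa1a, an inducible Hsp70, had 1.75 to 17.6 CPM (median 2.98) in CCl4 and 0.388 to 1.3 CPM (median 0.842) in CCl4_PTH livers (log2 fold change −2.71 ± 0.54, adjusted p = 0.00481, and −2.54 ± 0.57, adjusted p = 0.00514, without CCl4_PTH 1). The near-identical neighbour Hspa1b was at −2.63 ± 0.50 (−2.48 ± 0.54 without CCl4_PTH 1). The highest CCl4 level of Hspa1a was that of CCl4 5. Of 28 measured targets of NRF2, the sensor of oxidative stress, 1 rose (Gclm, but not in every leave-one-out fit) and 7 fell with all 12 libraries, 3 rose and 10 fell without CCl4_PTH 1, and 0 rose and 7 fell with size scaling alone. These 28 targets of NRF2, the sensor of oxidative stress had a median log2 fold change of −0.27, or −0.33 without CCl4_PTH 1. 5 of the 7 falls held in each of the 12 fits that left out 1 library. 5 (in 6 of the 12 fits) to 10 (without CCl4_PTH 1) of the measured genes fell in such a fit. Srxn1, sulfiredoxin, which repairs oxidised peroxiredoxins, had 56.7 to 127 CPM in CCl4 (median 81.2) and 21.6 to 42.7 CPM in CCl4_PTH livers (median 25.1). The Srxn1 values of both groups did not overlap, with CCl4_PTH 1 at 42.7 CPM. Srxn1 had a log2 fold change of −1.65 ± 0.21 (edgeR adjusted p = 0.000205), or −1.8 ± 0.19 without CCl4_PTH 1 (adjusted p = 1.28e-05). Gsta1, a glutathione transferase with close copies, fell from a median of 35.8 CPM (8.63 to 44.7) to 4.87 CPM (0.885 to 10.2) (−2.59 ± 0.54, and −2.35 ± 0.49 without CCl4_PTH 1). Sqstm1, the autophagy adaptor p62, fell from a median of 324 CPM (264 to 416) to 179.9 CPM (153 to 192) (−0.88 ± 0.13, and −0.88 ± 0.14 without CCl4_PTH 1). Of 25 measured lysosomal genes, 3 rose (Lamp1, Lamp2 and Mcoln1, Lamp2 in every leave-one-out fit) and 5 fell (Ctsd, Ctsz, Gusb, Hexa and Psap, Ctsd and Gusb in every leave-one-out fit) with all 12 libraries, 4 rose and 7 fell without CCl4_PTH 1, and 0 rose and 2 fell with size scaling alone. These 25 lysosomal genes had a median log2 fold change of −0.24, or −0.19 without CCl4_PTH 1. As a share of the list 12% rose and 20% fell, against 7.1% and 4.95% of all genes. Without CCl4_PTH 1 these were 16% and 28%, against 10.3% and 7.06%. Lamp2 had an adjusted p of 0.119 with size scaling alone. Of 30 measured cytosolic ribosomal protein genes, 0 rose and 2 fell (Rpl10a and Rpl19, none in every leave-one-out fit) with all 12 libraries, 0 rose and 6 fell without CCl4_PTH 1, and 0 rose and 1 fell with size scaling alone. Falls made up 6.67% of the list, and 20% without CCl4_PTH 1, against 4.95% and 7.06% of all genes. These 30 cytosolic ribosomal protein genes had a median log2 fold change of −0.18, or −0.20 without CCl4_PTH 1. Rpl19 and Rpl10a fell by 0.32 (−0.28 without CCl4_PTH 1; adjusted p = 0.0707) and 0.41 (−0.44 without CCl4_PTH 1) on the log2 scale; Rpl19 lost its call in 10 of the 12 leave-one-out fits (without CCl4 1, CCl4 2, CCl4 4, CCl4 5, CCl4 7, CCl4_PTH 1, CCl4_PTH 2, CCl4_PTH 3, CCl4_PTH 6, CCl4_PTH 8, largest adjusted p = 0.122), and Rpl10a lost its call in 4 of the 12 leave-one-out fits (without CCl4 1, CCl4 2, CCl4_PTH 2, CCl4_PTH 6, largest adjusted p = 0.0792).

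Markers of the remaining cell types follow, list by list. Of 20 measured sinusoidal endothelium genes, 2 rose (Clec4g and Ehd3, Clec4g in every leave-one-out fit) and 1 fell (Stab1, but not in every leave-one-out fit) with all 12 libraries, 6 rose and 1 fell without CCl4_PTH 1, and 0 rose and 0 fell with size scaling alone. Rises made up 10% of the list, and 30% without CCl4_PTH 1, against 7.1% and 10.3% of all genes. Falls made up 5% in both fits, against 4.95% and 7.06%. These 20 sinusoidal endothelium genes had a median log2 fold change of 0.13, or 0.22 without CCl4_PTH 1. Their sum was 597 to 644 CPM in CCl4, 678 to 784 CPM in the other 5 CCl4_PTH libraries and 545 CPM in CCl4_PTH 1. Of 23 measured genes of capillarised and vascular endothelium, 0 rose and 2 fell (Icam1 and Vcam1, Vcam1 in every leave-one-out fit) with all 12 libraries, and 0 rose and 6 fell without CCl4_PTH 1. Their falls made up 8.7% of the list, and 26.1% without CCl4_PTH 1, against 4.95% and 7.06% of all genes. These 23 genes of capillarised and vascular endothelium had a median log2 fold change of −0.30, or −0.22 without CCl4_PTH 1. They summed to 186 to 359 CPM in CCl4, 154 to 192 CPM in the other 5 CCl4_PTH libraries and 211 CPM in CCl4_PTH 1. Of 20 measured bile duct genes, 0 rose and 2 fell (Krt18 and Krt8, all in every leave-one-out fit) with all 12 libraries, and 0 rose and 2 fell without CCl4_PTH 1. Falls made up 10% of this list in both fits, against 4.95% and 7.06% of all genes. These 20 bile duct genes had a median log2 fold change of −0.23, or −0.33 without CCl4_PTH 1. Both genes that fell are keratins (Krt8 −0.95 ± 0.19, and −0.88 ± 0.20 without CCl4_PTH 1, Krt18 −0.97 ± 0.17, and −0.98 ± 0.18 without CCl4_PTH 1) that hepatocytes also make, and the duct markers Krt7, Krt19 and Epcam summed to 2.92 to 9.14 CPM in CCl4, 3.14 to 9.14 CPM in the other 5 CCl4_PTH libraries and 4.34 CPM in CCl4_PTH 1. Of 13 measured red cell and platelet genes, 0 rose and 1 fell (Slc4a1, but not in every leave-one-out fit) with all 12 libraries, 1 rose and 1 fell without CCl4_PTH 1, and 0 rose and 2 fell with size scaling alone. Falls made up 7.69% of that list in both fits, against 4.95% and 7.06% of all genes. These 13 red cell and platelet genes had a median log2 fold change of −0.52, or −0.69 without CCl4_PTH 1. Red cell markers (Hba-a1, Hbb-bs, Alas2) summed to 185 to 330.1 CPM in CCl4, 157 to 232 CPM in the other 5 CCl4_PTH libraries and 48.4 CPM in CCl4_PTH 1. Alas2, of heme synthesis, was at 1.05 ± 0.34 (adjusted p = 0.0555) and rose without CCl4_PTH 1 (1.29 ± 0.20, adjusted p = 0.000323). Of 7 measured adipocyte genes, 0 rose and 1 fell (Fabp4, in every leave-one-out fit) with all 12 libraries, and 1 rose and 2 fell without CCl4_PTH 1. These 7 adipocyte genes had a median log2 fold change of −0.16, or −0.04 without CCl4_PTH 1. The adipocyte-defining Adipoq and Plin1 summed to at most 0.147 CPM. The adipocyte list summed to 75.7 to 379 CPM in CCl4, 859 to 1334 CPM in the other 5 CCl4_PTH libraries and 25.7 CPM in CCl4_PTH 1 in all. Car3, a carbonic anhydrase that hepatocytes also make, had 39.4 to 352 CPM (median 137) in CCl4 livers, 839 to 1305 CPM (median 1170.5) in the other 5 CCl4_PTH livers and 0.766 CPM in CCl4_PTH 1 (log2 fold change 2.44 ± 0.85, adjusted p = 0.0694, and 2.72 ± 0.43, adjusted p = 0.000405, without CCl4_PTH 1). The 10 measured mesothelium, 2 pancreatic acinar and 3 skeletal muscle genes gave 0 calls in either fit. Their lists summed to 12.8 to 32.6 CPM in CCl4, 12 to 56.6 CPM in the other 5 CCl4_PTH libraries and 13.6 CPM in CCl4_PTH 1 for mesothelium, to 0.948 to 3.81 CPM in CCl4, 2.4 to 3.18 CPM in the other 5 CCl4_PTH libraries and 1.23 CPM in CCl4_PTH 1 for acinar cells and to 0.726 to 1.34 CPM in CCl4, 0.793 to 1.08 CPM in the other 5 CCl4_PTH libraries and 0.732 CPM in CCl4_PTH 1 for skeletal muscle. The part of these cell types in the results above was not tested.

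Outside the lists, the largest falls among genes that met the naming rule given below were in genes nearly silent in CCl4_PTH livers. Sprr1a, an epithelial cornified envelope protein, had 0.635 to 11.3 CPM in CCl4 (median 6.59) and 0 to 0.221 CPM in CCl4_PTH livers (median 0). The fitted log2 fold change was −7.29 ± 1.18 (edgeR adjusted p = 0.00352; −7.0 ± 1.25 without CCl4_PTH 1), a value that depends on the prior count where a group is near 0. Vmn2r3, a vomeronasal receptor gene, fell from a median of 6.41 CPM (2.75 to 11.4) to 0.114 CPM (0 to 0.241) (−5.82 ± 0.74, and −5.53 ± 0.67 without CCl4_PTH 1), and Vmn1r90, another, rose from a median of 0.32 CPM (0 to 0.599) to 6.4 CPM (0.272 to 7.97) (4.09 ± 0.63, and 4.36 ± 0.40 without CCl4_PTH 1), with CCl4_PTH 1 at 0.272 CPM against 5.54 to 7.97 CPM (median 6.53) in the other 5. Bhlha15, Mist1, a secretory cell transcription factor, had 3.53 to 12.7 CPM in CCl4 (median 5.92) and 0.234 to 0.779 CPM in CCl4_PTH livers (median 0.451). The Bhlha15 values of both groups did not overlap, with CCl4_PTH 1 at 0.536 CPM. Bhlha15 had a log2 fold change of −3.83 ± 0.51 (edgeR adjusted p = 0.00029), or −3.86 ± 0.55 without CCl4_PTH 1 (adjusted p = 0.000213). Evi2b, a membrane protein of blood cells, had 1.78 to 4.06 CPM in CCl4 (median 3.15) and 0.0426 to 0.894 CPM in CCl4_PTH livers (median 0.196). The Evi2b values of both groups did not overlap, with CCl4_PTH 1 at 0.0426 CPM. Evi2b had a log2 fold change of −3.07 ± 0.55 (edgeR adjusted p = 0.00268), or −2.8 ± 0.50 without CCl4_PTH 1 (adjusted p = 0.001). Trdc, the constant region of the delta T cell receptor, fell from a median of 2.4 CPM (0.285 to 4.54) to 0.105 CPM (0.0255 to 0.315) (−3.95 ± 0.80, and −3.7 ± 0.81 without CCl4_PTH 1). Abhd2, a lipase, was named for its high CPM and not for the size of its fall. Its median went from 383 CPM (235 to 449.8) to 158 CPM (128 to 273) (−1.03 ± 0.27, and −1.18 ± 0.27 without CCl4_PTH 1).

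Long noncoding RNAs with the largest changes had no known role to give here. Gm31583 rose from a median of 2.71 CPM (1.22 to 11.2) to 27.6 CPM (6.79 to 51.1) (2.61 ± 0.54, and 2.83 ± 0.51 without CCl4_PTH 1), with CCl4_PTH 1 inside the CCl4 range at 6.79 CPM. Gm15998 rose from a median of 0.659 CPM (0.474 to 2.83) to 4.14 CPM (3.11 to 5.57) (2.05 ± 0.52, and 2.15 ± 0.55 without CCl4_PTH 1). Hectd2os rose by 2.64 ± 0.78 (2.92 ± 0.52 without CCl4_PTH 1) and not in 8 of the 12 leave-one-out fits, and CCl4_PTH 1 had 0.017 CPM against 5.37 to 16.1 CPM (median 8.9) in the other 5. AI506816 fell from a median of 18.9 CPM (17.1 to 21) to 7.87 CPM (6.38 to 15.4) (−1.05 ± 0.21, and −1.25 ± 0.17 without CCl4_PTH 1), and its groups did not overlap. Gm17767 fell by 1.27 (−1.16 without CCl4_PTH 1) and Gm19705 by 1.19 (−1.35 without CCl4_PTH 1) on the log2 scale. Of the genes named here, these overlap a gene on the opposite strand in the GENCODE annotation: Abcb11, Abcg5, Abcg8, Alas2, Arntl, Axin2, Cd22, Cdkn1a, Cebpa, Clec4g, Col4a2, Ctsz, Cxcl10, Ddit3, Dusp5, Foxo1, Gbp2, Gclm, Glul, Gm15998, Golm1, H19, Hectd2os, Hexa, Hmgcs1, Hspa1a, Icam1, Idi1, Il34, Jun, Krt7, Krt8, Lamp1, Lss, Manf, Mmp12, Mylk, Notum, Nr1i3, Pck2, Pcolce, Rpl10a, Rspo3, Slc1a2, Sqstm1, Srebf1, Stab1, Tbx3, Tef, Trdc, Vcam1 and Zfp36. Those that overlap another gene on their own strand are Col3a1, Ctsd, Ddit3, Evi2b, Fpr2, Gclm, Glul, H19, Manf, Pcolce, Rpl19, Serpina3k, Srebf1 and Vmn1r90. The sources used here do not say whether counting used the strand, so their counts may hold reads of the neighbour.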

How the data were processed

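Livers of 18 mice were profiled by RNA sequencing after ribosomal RNA removal, and the 12 CCl4 and CCl4_PTH libraries are compared here. Values are estimated counts per gene that the authors deposited, all of them whole numbers, so that rounding changed no value. Without role or order, GRCm38, HISAT2 2.2.1, Bowtie2 2.5.1, StringTie 2.1.5, cutadapt 4.2 and FastQC 0.11.9 are named in the submitters' processing notes; the counting tool and strand setting are not given in the sources used here. Of 54752 genes, 18164 had 0 counts throughout and 21840 passed edgeR's filterByExpr (minimum count 10). Of the identifiers, 54723 matched GENCODE M21, which gave coordinates and overlaps, and 29 did not. The 357 ribosomal RNA loci were kept in the test, and left out in an alternative.

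Groups came from the labels. Counts were tested with edgeR 4.0.16 (R 4.3.3; quasi-likelihood, TMM scaling, all 3 groups sharing 1 estimate of the spread, Benjamini-Hochberg threshold 0.05), with and without CCl4_PTH 1. Standard errors are approximate (log2 fold change over the root of F). List scores are mean log2 CPM with a prior count of 0.5. The test was checked on simulated data. Any 2 libraries of 1 group differed beyond sampling noise (chi-square per gene at least 57.9). The members and the 51 lists were chosen with earlier results of these data known; 4 of 1144 symbols were not found.

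The genes to be named were those called the same way with and without CCl4_PTH 1, with a mean of at least 1 CPM and group medians 1.5 times apart: the 8 largest rises and falls, the 3 largest of each among long noncoding RNAs, and the 3 with the highest CPM in each direction. To these came the 5 with the largest shift among genes that lost and among those that gained a call without CCl4_PTH 1, the 2 members of each list with the smallest p, and 21 genes followed whatever their call, 145 in all. In picking by size, CPM or shift, clone, accession and predicted gene symbols were passed over, save among long noncoding RNAs. Alternatives were DESeq2 1.42.0 and its size factors, limma 3.58.1 with voom quality weights, library sizes only, no or a stricter count filter (50), ribosomal loci left out, thinned counts, the 12 libraries alone, each library left out, and a replicate block. Some of the named genes are not reported here. Small and circular RNA libraries were not analysed here.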

Additional observations from a re-analysis of the deposited data

Results flagged for a closer look

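In 226 groups of values (57 genes, 51 list scores and 5 measures of the libraries, in CCl4 and in CCl4_PTH livers), 1 library lay far from the other 5 of its group in 43 by Dixon's test. Its threshold is passed by about 1 of 20 groups of normally distributed values. Genes were taken as CPM, not as logarithms, and genes and lists share members, so that rate is no yardstick for the 43. CCl4_PTH 1 was that library in 28 of the 43, for 18 genes and 10 list scores. That number is in part set by the choice of genes, since 7 of the 18 were named because their call was lost or gained without CCl4_PTH 1. All gene values here are in CPM and all scores are mean log2 CPM.

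CCl4_PTH 1 was far above the other 5 in acute phase and injury genes: Lcn2 1475, Apcs 1118, Saa1 1912, Cxcl2 15.5, Chil3 45.73, Timp1 13.83, Col1a1 268 and Acta2 10.59. It was also far above them in the immunoglobulin family gene Igdcc4 (44.17), Fos (3.431), Sqle (145.8), Hspa5 (581.1), the noncoding RNA AI506816 (15.38), the citrate transporter Slc13a5 (10.54), and the plasma proteins Hrg (1039) and Serpina3k (6700). It was far below them in Vmn1r90 (0.2724) and Sult2a8 (2.009). Its acute phase score (9.511) and neutrophil score (3.47) were high. Its scores were low for pericentral genes (4.017), drug-metabolising P450 genes (4.623), glucuronidation and sulfation (4.434), bile acid synthesis (5.21), gluconeogenesis and glycogen (5.774), oxidative phosphorylation (5.165), adipocyte genes (0.4504) and pancreatic acinar genes (−3.666). The cause was not tested.

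Other CCl4_PTH libraries stood apart in Hsd3b5 (9.023 in CCl4_PTH 6), Cyp3a41b (9.531 in CCl4_PTH 2), Mup12 (268.7 in CCl4_PTH 2) and Sprr1a (0.2213 in CCl4_PTH 8, 0 in the other 5). Among CCl4 livers, CCl4 5 was high in Hspa1a (17.57), Hspa5 (845.8), Gm15998 (2.829), the pseudogene Mup-ps17 (0.4842) and the cytosolic heat shock score (5.342), and low in Mki67 (9.76) and the cell cycle score (0.7385). CCl4 2 was high in Slc1a2 (2.359), Igdcc4 (15.12) and Saa1 (164.6), and CCl4 1 was low in the mesothelium score (−0.1447).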

How the results depend on the processing

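The 115 named genes that passed kept their direction in each alternative that gave them a value, and 5 of them had no value in some alternative, counted below as not passing; 88 passed in all 12 fits that left out 1 library, 75 in every alternative but the block, and 22 with the block. With 1551 higher and 1081 lower genes to start from, scaling by library sizes only gave 476 and 621, and 975 and 992 together with leaving out CCl4_PTH 1. The fit of the 12 libraries alone gave 1058 higher and 709 lower genes, and that of the 11 without CCl4_PTH 1 gave 1712 and 1680. DESeq2's Wald test gave 2048 higher and 1766 lower genes, and limma with voom quality weights 2198 and 1969. Leaving out 1 library gave 934 to 2286 higher and 575 to 1568 lower genes. With a replicate block, 42 genes were higher and 42 lower. The same-numbered libraries (1, 2, 7 and 8) had deviations from their group means that correlated at −0.172, −0.0809, −0.166 and −0.0899, against −0.196 to 0.202 over all pairs. Correlations of so few pairs cannot tell whether a shared number stands for more, such as a batch. Genes that did not pass with all 12 libraries reversed in some fits. In the order without CCl4_PTH 1, the 11 libraries, and library sizes only without CCl4_PTH 1, the log2 fold change of Lcn2 was −3.26, −3.29 and −3.41, the log2 fold change of Cxcl2 was −2.24, −2.27 and −2.42, the log2 fold change of Apcs was −1.66, −1.68 and −1.73, and the log2 fold change of Chil3 was −2.81, −2.84 and −3.06. Leaving out 1 library gave Lcn2 −3.26 to 1.02, Cxcl2 −2.24 to 1.54, Apcs −1.66 to 1.76, Chil3 −2.81 to 0.58 and the log2 fold change of Igdcc4 −2.26 (without CCl4_PTH 1) to 2.23. The voom fit reversed Lcn2 (−2.72) and Chil3 (−2.48). Of 153 list values (51 lists, with their rises, falls and median), 49 moved without CCl4_PTH 1 and 37 with library sizes only (counts by over 1.5 times, medians by over the spread between libraries). The fits of the 11 libraries and of library sizes only without CCl4_PTH 1 were chosen after seeing the data, and the cause of each shift was not tested. List medians changed sign in 5 of 51 lists with library sizes only and in 4 without CCl4_PTH 1. Thinning the counts at random to the smallest total outside ribosomal RNA gave 1563 higher and 1148 lower genes.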
